A study of Homo sapiens with 9 samples.

Results

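The comparison set 2 hairpins against the same transcript side by side: FOSL1sh3 (3 libraries, replicates 1 to 3) against FOSL1sh10 (3 libraries, replicates 1 to 3), 6 of the 9 libraries of the series, chosen by their titles alone and read over all genes. All libraries came from EGI-1, an established human cholangiocarcinoma (bile duct cancer) cell line carrying a TET-inducible short hairpin RNA. The other 3 libraries carried a control hairpin against GFP (GFPsh) and are given as levels only, because neither hairpin is tested against them here. Every group, control included, received doxycycline at 2 ug per ml for 4 days and was harvested 24 hours after seeding. The groups thus share the drug and the induction of a hairpin. FOSL1sh3 and FOSL1sh10 differ in the hairpin but not in its target, and GFPsh differs from both in the target. The labels name 1 cell line and do not say whether a hairpin line was a clone or a pool or whether replicates were separate cultures. The p-values therefore measure the spread between these libraries, which may be technical.

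FOSL1 encodes FRA-1, a FOS family protein that has to pair with a JUN protein and then binds AP-1 sites in DNA. In carcinomas AP-1 dimers are known for driving genes of migration, matrix turnover, cytokine production and growth factor signalling, and they often share regulatory regions with the inflammatory factor NF-kB. Hairpins that lower the same transcript differ in their guide sequence, and the comparison asks which programs differ between them at similar FOSL1 transcript levels.

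The FOSL1 transcript (chr11:65892049-65900573, minus strand, hg38, as for all gene positions here) was at 72.1, 70.1 and 44.8 CPM in FOSL1sh3 and 70.7, 57 and 65.7 CPM in FOSL1sh10, with 302, 256 and 182 in GFPsh. Levels are in CPM, the count set to a common library total and scaled by TMM, a method that corrects for library composition, and the libraries of each group are listed in the order of replicates 1, 2 and 3. Every hairpin library was below every control library, and the 2 hairpins overlapped. The difference between them (log2 fold change -0.05, SE 0.195, adjusted p = 0.9) had a 95% interval of -0.46 to 0.36. Throughout, a log2 fold change is FOSL1sh3 minus FOSL1sh10, so a negative value means higher in FOSL1sh10. The sign for FOSL1 turned without FOSL1sh3 replicate 3 (0.14) and without FOSL1sh10 replicate 1 (0.02).

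At these FOSL1 levels 1632 of 12814 genes tested (12.7%) differed between the hairpins at an adjusted p under 0.05 (edgeR quasi-likelihood test, Benjamini-Hochberg adjustment over all genes), which is what "called" means below. Of these, 736 (5.74% of genes tested) were higher in FOSL1sh3 and 896 (6.99%) were higher in FOSL1sh10. A change of at least 1 on the log2 scale was reached by 526 called genes, 205 of them higher in FOSL1sh3 and 321 higher in FOSL1sh10, and the median size among called genes was 0.80. For 8249 genes (64.4%) the 95% interval lay within 1 either way. Scaling by library totals alone moved the median of all genes from 0.00 to -0.17 and the share of calls that were higher in FOSL1sh3 from 45.1% to 17.6% of 2189 calls, and no called gene changed sign. Of 251 called genes that the naming rule took, 124 kept the call whichever library was left out, and most of the other 127 were lost without FOSL1sh10 replicate 2 (112 genes no longer called) or 3 (95), FOSL1sh3 replicate 1 (73) or 3 (65). Calls numbered 1055 without FOSL1sh3 replicate 3, 714 without FOSL1sh10 replicate 2 and 895 without FOSL1sh10 replicate 3.

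Some features of the libraries moved with the comparison, and their part in the results was not tested. Library totals ranged from 6893026 to 10604251 counts, and the groups overlapped in depth. The share of counts on ribosomal protein genes was 27.8% ± 0.108 for FOSL1sh3, 22.6% ± 1.94 for FOSL1sh10 and 25.8% ± 0.802 for GFPsh (mean ± SD, 3 libraries each; exact two-sided permutation test between the hairpins, p = 0.1, the smallest 3 against 3 allow). Genes with GC-poor transcripts leaned to FOSL1sh10 and GC-rich ones to FOSL1sh3. Among the fifth of genes lowest in GC the median log2 fold change was -0.21, with 40 calls higher in FOSL1sh3 and 272 higher in FOSL1sh10, and among the fifth highest in GC it was 0.15, with 288 and 76 calls. With the GC and length trend removed, an alternative chosen after seeing the data, 1509 genes were called, and they held 75.3% of the main calls. FOSL1sh3 replicate 3 stood farthest out on the first principal component (47.3, against 18.5 and 32.1 for replicates 2 and 1). Epithelial genes (KRT8, KRT18, KRT19, EPCAM) were abundant in every library, while 17 of 20 leukocyte markers, 13 of 17 fibroblast and endothelial markers and 16 of 18 hepatocyte markers were under 10 counts in every library. Several biliary genes (HNF4A, SPP1, CFTR, AQP1) were also near 0 and ONECUT1 had no count.

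**Figure D1:**
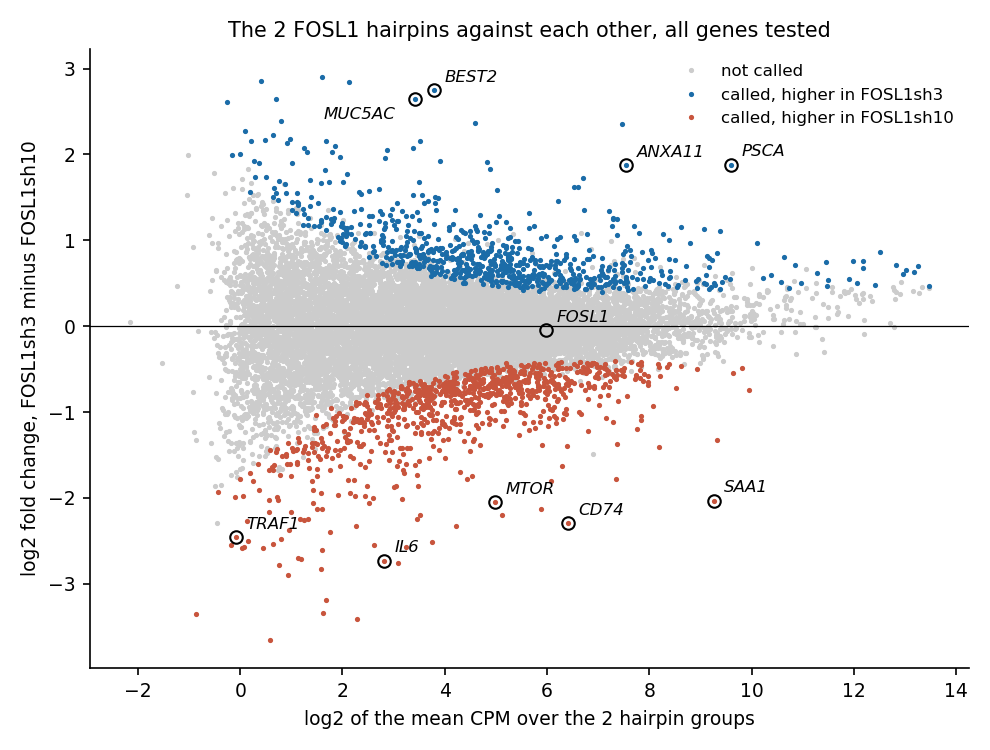
Log2 fold change between the hairpins (FOSL1sh3 minus FOSL1sh10, vertical axis) against log2 mean CPM over the 6 hairpin libraries (horizontal axis), 1 point per gene for 12814 genes. Called genes lie on both sides, 736 above and 896 below 0, while FOSL1 sits at -0.05.

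Members of the AP-1 family parted in opposite directions. The list gave 2 of 16 tested members higher in FOSL1sh3 (12.5%, against 5.74% of all genes) and 3 higher in FOSL1sh10 (18.8%, against 6.99%), and a median log2 fold change of -0.05 (0.00 over all genes). FOS, an immediate early FOS protein, was at 13.1, 16.4 and 23.4 CPM in FOSL1sh3 and 10.7, 5.75 and 12.2 CPM in FOSL1sh10, with 3.3, 5.28 and 5.28 in GFPsh. Between the hairpins FOS differed by 0.88 (SE 0.275, adjusted p = 0.042) on the log2 scale. All FOSL1sh3 libraries were above all FOSL1sh10 libraries, and both hairpins were above every control library. JUNB, a JUN partner with weaker activating capacity than JUN, showed the same order at 82.2, 86.8 and 107 CPM in FOSL1sh3 and 61.2, 45.9 and 55.7 CPM in FOSL1sh10, with 42.4, 40.5 and 41 in GFPsh. The difference for JUNB was 0.76 (SE 0.146, adjusted p = 0.00271) on the log2 scale. JUN itself ran the other way, at 57.8, 64.2 and 50.4 CPM in FOSL1sh3 and 92.3, 94 and 88.5 CPM in FOSL1sh10, with 68, 76 and 64.1 in GFPsh. For JUN the log2 fold change was -0.67 (SE 0.137, adjusted p = 0.00375). FOSL1sh10 was above every control library for JUN and FOSL1sh3 overlapped the controls. FOSL2, which encodes FRA-2, the closest relative of FRA-1, was at 11.7, 12.8 and 14.5 CPM in FOSL1sh3 and 17.9, 22.3 and 21.2 CPM in FOSL1sh10, with 13.3, 18.3 and 12.9 in GFPsh (log2 fold change -0.66, SE 0.193, adjusted p = 0.03). The stress-induced factor ATF3, which can pair with JUN, was at 11.5, 18.9 and 9.77 CPM in FOSL1sh3 and 36.9, 36 and 27.8 CPM in FOSL1sh10, with 19.5, 16.8 and 23.4 in GFPsh (log2 fold change -1.34, SE 0.222, adjusted p = 0.000926), and only FOSL1sh10 was above all controls. JUNB lies within HOOK2 on the opposite strand and the counting used no strand, so reads of the pair cannot be told apart. JUND (-0.31 ± 0.218, log2 ± SE here and below) and BATF (0.19 ± 0.152) were not called. The call of FOS was lost without GFPsh replicate 2, FOSL1sh3 replicate 2 or 3 or FOSL1sh10 replicate 1 or 2, that of FOSL2 without FOSL1sh3 replicate 1 or 2 or FOSL1sh10 replicate 2 or 3, and that of FOS also with library totals alone.

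**Figure D2:**
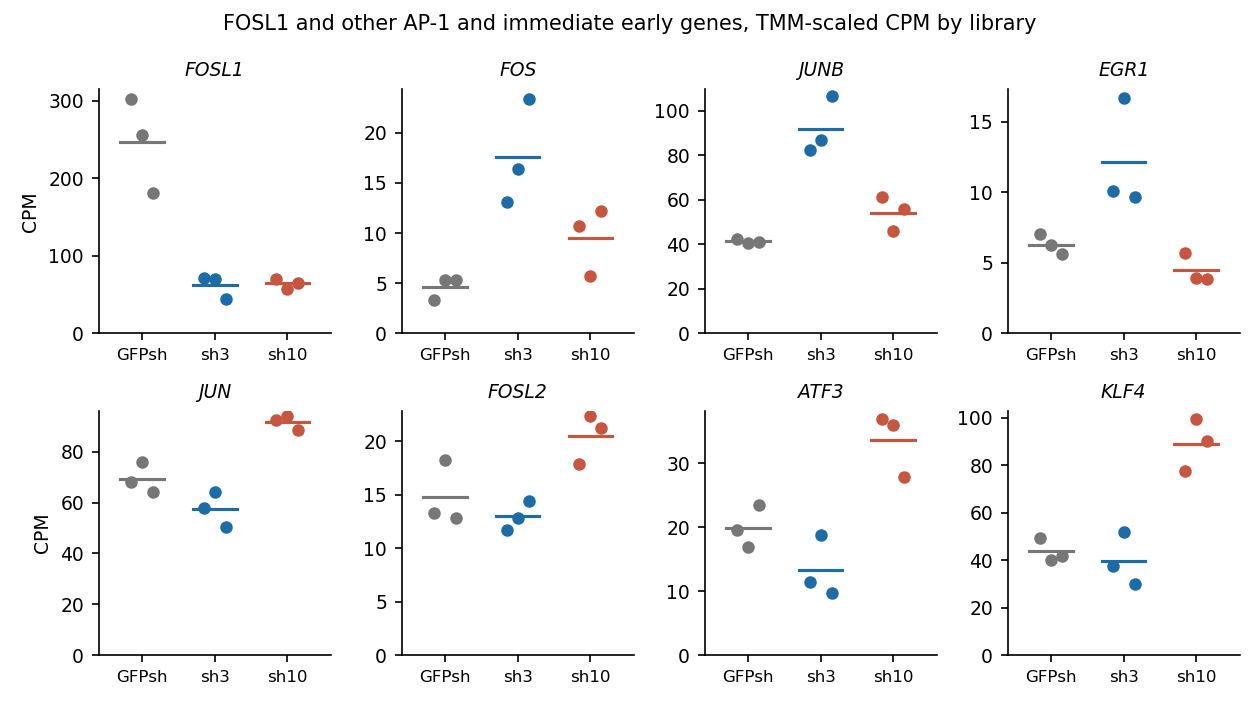
TMM-scaled CPM in each library (points) and group mean (line) for FOSL1, 5 other AP-1 genes and the immediate early or epithelial factors EGR1 and KLF4. The hairpins overlap for FOSL1, FOSL1sh3 is higher for FOS, JUNB and EGR1, and FOSL1sh10 is higher for JUN, FOSL2, ATF3 and KLF4.

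Most tested genes for secreted inflammatory mediators were higher in FOSL1sh10, with 1 of 21 tested members higher in FOSL1sh3 (4.76%, against 5.74% of all genes) and 15 higher in FOSL1sh10 (71.4%, against 6.99%), and a median log2 fold change of -1.57. Of 30 listed genes 21 passed the expression filter (minimum count 10). TNF and IL11 passed it only through their FOSL1sh10 libraries. A call the other way was thus not open to them, and they do not count as support for the lean. The cytokine IL6 (chr7:22725884-22732002, plus strand) was at 2.25, 2.3 and 0.889 CPM in FOSL1sh3 and 14.5, 13.4 and 8.74 CPM in FOSL1sh10, with 1.1, 1.35 and 1.98 in GFPsh. The difference for IL6 was -2.73 (SE 0.34, adjusted p = 5.79e-05) on the log2 scale. FOSL1sh3 overlapped the controls and only FOSL1sh10 was above them. CXCL8, which draws neutrophils, was at 2.97, 1.58 and 0.635 CPM in FOSL1sh3 and 8.54, 9.03 and 13.8 CPM in FOSL1sh10, with 6.74, 3.14 and 7.26 in GFPsh. For CXCL8 the log2 fold change was -2.55 (SE 0.406, adjusted p = 0.000636). Here the hairpins lay on opposite sides of the controls. The related chemokines CXCL1, CXCL2 and CXCL3 lie close together on chromosome 4. CXCL1 was at 11.1, 17.4 and 8.89 CPM in FOSL1sh3 and 57.9, 66.8 and 45.5 CPM in FOSL1sh10, with 16.1, 20.5 and 20.1 in GFPsh. Between the hairpins CXCL1 differed by -2.20 (SE 0.219, adjusted p = 5.86e-06) on the log2 scale. CXCL3 was at 3.79, 5.32 and 2.41 CPM in FOSL1sh3 and 17.5, 21.3 and 15.7 CPM in FOSL1sh10, with 5.5, 5.28 and 3.85 in GFPsh (log2 fold change -2.25, SE 0.265, adjusted p = 3.07e-05). CXCL2 was at 3.89, 9.07 and 4.19 CPM in FOSL1sh3 and 22.5, 14.9 and 13.1 CPM in FOSL1sh10, with 5.5, 5.05 and 5.39 in GFPsh. For CXCL2 the log2 fold change was -1.57 (SE 0.292, adjusted p = 0.00214). In all of them FOSL1sh10 was above every other library, and FOSL1sh3 overlapped GFPsh.

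The colony stimulating factors followed the same order. CSF2, which encodes GM-CSF, was at 34, 45 and 35.7 CPM in FOSL1sh3 and 134, 122 and 97.7 CPM in FOSL1sh10, with 49.1, 60.1 and 53.7 in GFPsh (log2 fold change -1.63, SE 0.159, adjusted p = 4.97e-06), with the hairpins on opposite sides of the controls. CSF1, the macrophage growth factor, was at 3.79, 2.73 and 3.81 CPM in FOSL1sh3 and 10.7, 15.1 and 12.3 CPM in FOSL1sh10, with 2.75, 4.38 and 3.3 in GFPsh. Between the hairpins CSF1 differed by -1.87 (SE 0.26, adjusted p = 0.000179) on the log2 scale. IL1A, an epithelial alarm cytokine, was at 5.53, 3.89 and 3.55 CPM in FOSL1sh3 and 11.2, 14.9 and 15.8 CPM in FOSL1sh10, with 5.37, 3.14 and 5.83 in GFPsh. The difference for IL1A was -1.68 (SE 0.267, adjusted p = 0.000622) on the log2 scale. CCL28, a mucosal chemokine, was at 6.55, 7.2 and 8.89 CPM in FOSL1sh3 and 17.9, 18.3 and 23 CPM in FOSL1sh10, with 12.2, 11.2 and 11 in GFPsh (log2 fold change -1.39, SE 0.199, adjusted p = 0.000239), and TNFSF15, a TNF family ligand, at 7.27, 5.9 and 6.98 CPM in FOSL1sh3 and 13.9, 12.3 and 19.3 CPM in FOSL1sh10, with 10.9, 8.98 and 11.9 in GFPsh (log2 fold change -1.17, SE 0.224, adjusted p = 0.00253). For both, FOSL1sh3 was below and FOSL1sh10 above every control library. IL11, a cytokine of the IL6 family, had few reads, with 8, 2 and 10 reads in FOSL1sh3, 38, 31 and 29 in FOSL1sh10 and 3, 6 and 18 in GFPsh (log2 fold change -2.25, SE 0.528, adjusted p = 0.00959). TNF had still fewer, with 0, 4 and 3 reads in FOSL1sh3, 10, 16 and 21 in FOSL1sh10 and 0, 2 and 0 in GFPsh (log2 fold change -2.57, SE 0.706, adjusted p = 0.0233), and such folds depend on the prior count of the fit. A level of 3 counts corresponds to 0.283 to 0.435 CPM here, for counting error only. IL1B (-0.81, SE 0.21, adjusted p = 0.0171) and IL32 (-0.69, SE 0.167, adjusted p = 0.0122) were higher in FOSL1sh10 as well, and FOSL1sh3 was above the controls for IL32. The calls of TNF, IL1B and IL32 were lost without FOSL1sh3 replicate 1 or 3 or FOSL1sh10 replicate 2 or 3, without FOSL1sh10 replicate 3 and without FOSL1sh10 replicate 2, in that order.

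The exception was LCN2, an iron-siderophore binding protein of epithelial defence, at 279, 321 and 359 CPM in FOSL1sh3 and 226, 201 and 235 CPM in FOSL1sh10, with 125, 126 and 116 in GFPsh. Between the hairpins LCN2 differed by 0.53 (SE 0.136, adjusted p = 0.0159) on the log2 scale. Both hairpins were above the controls and FOSL1sh3 was the higher. Its call was lost without FOSL1sh3 replicate 3 or FOSL1sh10 replicate 2 and with library totals alone. LIF (-0.33 ± 0.167), CCL20 (-0.59 ± 0.386), CXCL16 (-0.11 ± 0.145), TNFSF10 (0.19 ± 0.43) and IL18 (0.36 ± 0.129) were not called. Members that were not called are named here for their role, after their values were seen. Summed over the list, the level was 1282 to 1402 CPM in FOSL1sh3 and 1306 to 1376 CPM in FOSL1sh10, a sum in which LCN2 and other abundant members weigh most.

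NF-kB is known for switching on many of these chemokines, so list members are likely to hold its sites whichever way they moved. Its letters were looked up in the promoters as a description, and a part of NF-kB in the difference was not tested. The letters GGG, 2 free bases and TTTCC were searched on both strands in RefSeq windows (GRCh38.p14) from 250 bases before to 50 bases after each gene's start. Windows were found for 9626 of the 12814 genes, and 2.19% of them held the letters. Among tested mediators with a window, called or not, 6 of 17 (35.3%) held them. Among called genes that differed by at least 1 on the log2 scale the share was 5.2% (13 of 250) for genes higher in FOSL1sh10 and 0.813% (1 of 123) for genes higher in FOSL1sh3. A match is a description of the letters and not a measured site. Matches of 4 of these mediators and of 2 NF-kB feedback genes described next are shown, the first of 2 for TNFAIP3, while IL32 also held a match that is not shown. They run 5′ to 3′ in the gene's direction, with the motif or its reverse complement in capitals.
IL6 (chr7:22727107-22727156, plus strand, capitals 73 to 64 bases before the start): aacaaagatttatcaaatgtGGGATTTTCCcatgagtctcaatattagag
CXCL1 (chr4:73869294-73869343, plus strand, capitals 79 to 70 bases before the start): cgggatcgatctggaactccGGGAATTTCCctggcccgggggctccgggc
CXCL2 (chr4:74099244-74099293, minus strand, capitals 78 to 69 bases before the start): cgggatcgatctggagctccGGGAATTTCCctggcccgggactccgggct
CXCL3 (chr4:74038739-74038788, minus strand, capitals 79 to 70 bases before the start): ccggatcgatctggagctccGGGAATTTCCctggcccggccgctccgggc
TNFAIP3 (chr6:137867172-137867221, plus strand, capitals 67 to 58 bases before the start): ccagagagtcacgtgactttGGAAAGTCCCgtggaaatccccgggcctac
BIRC3 (chr11:102317265-102317314, plus strand, capitals 199 to 190 bases before the start): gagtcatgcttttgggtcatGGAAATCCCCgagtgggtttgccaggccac

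Of the genes shown, IL6 had the largest difference between the hairpins and BIRC3 the smallest. AP-1 letters (TGANTCA, both strands) were in 4.63% of all windows, in 10% (25 of 250) of those higher by at least 1 in FOSL1sh10 and in 3.25% (4 of 123) of those higher by at least 1 in FOSL1sh3. Over all called genes with a window the shares were 7.3% (52 of 712) for FOSL1sh10 and 5.5% (29 of 527) for FOSL1sh3. The letters were in 5 of the 17 mediator windows (29.4%) and in 0 of 19 windows of the NF-kB list described next. In lists that leaned to FOSL1sh3 they were in 2 of 7 mucin windows (28.6%) and 2 of 10 hemidesmosome windows (20%). CXCL8 and IL11, both higher in FOSL1sh10, and the mucin MUC2, higher in FOSL1sh3, are shown with the AP-1 letters in capitals.
CXCL8 (chr4:73740412-73740458, plus strand, capitals 137 to 131 bases before the start): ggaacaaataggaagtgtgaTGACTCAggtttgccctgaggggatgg
IL11 (chr19:55370533-55370579, minus strand, capitals 96 to 90 bases before the start): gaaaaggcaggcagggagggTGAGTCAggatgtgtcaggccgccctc
MUC2 (chr11:1074703-1074749, plus strand, capitals 151 to 145 bases before the start): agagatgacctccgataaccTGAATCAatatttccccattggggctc

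NF-kB subunits and feedback genes leaned the same way as the mediators, with 1 of 22 tested members higher in FOSL1sh3 (4.55%, against 5.74% of all genes) and 9 higher in FOSL1sh10 (40.9%, against 6.99%), and a median log2 fold change of -0.42. The share of windows with the NF-kB letters was 31.6% (6 of 19) for tested members of this list, called or not. TNFAIP3, the deubiquitinase A20 that shuts the pathway off, was at 40.1, 47.3 and 39.9 CPM in FOSL1sh3 and 83.4, 104 and 78.9 CPM in FOSL1sh10, with 58.1, 56.9 and 70.8 in GFPsh. The difference for TNFAIP3 was -1.07 (SE 0.151, adjusted p = 0.000229) on the log2 scale. BIRC3, a ubiquitin ligase of the TNF receptor complex, was at 91.6, 99.3 and 77.1 CPM in FOSL1sh3 and 186, 130 and 192 CPM in FOSL1sh10, with 116, 106 and 122 in GFPsh. For BIRC3 the log2 fold change was -0.92 (SE 0.159, adjusted p = 0.00119). For both, FOSL1sh3 was below and FOSL1sh10 above all controls. NFKBIE, an inhibitor that holds NF-kB in the cytoplasm, was at 36.2, 31.4 and 42 CPM in FOSL1sh3 and 57.8, 76 and 61.3 CPM in FOSL1sh10, with 39.2, 49.1 and 50.1 in GFPsh (log2 fold change -0.83, SE 0.16, adjusted p = 0.00265). The subunits of the alternative pathway RELB (-0.72, SE 0.162, adjusted p = 0.00747) and NFKB2 (-0.67, SE 0.164, adjusted p = 0.0129) were higher in FOSL1sh10. RELB was at 32.4, 38.6 and 30.3 CPM there against 18.3, 21.4 and 21.8 CPM in FOSL1sh3. TRAF1, an adaptor induced by NF-kB, had few reads, with 4, 2 and 1 reads in FOSL1sh3, 10, 13 and 19 in FOSL1sh10 and 2, 0 and 6 in GFPsh (log2 fold change -2.46, SE 0.679, adjusted p = 0.024). TRAF1 passed the expression filter only through its FOSL1sh10 libraries, so its call does not count as support for the lean. TRAF2 (-0.57 ± 0.158), IKBKE (-0.71 ± 0.203) and NFKBIB (-0.50 ± 0.146) were called too. NFKBIB shares exon bases with SIRT2 on the opposite strand. TNFAIP2, first found as a TNF-induced gene, was the exception at 183, 167 and 247 CPM in FOSL1sh3 and 132, 118 and 111 CPM in FOSL1sh10, with 91.4, 102 and 102 in GFPsh. The difference for TNFAIP2 was 0.73 (SE 0.152, adjusted p = 0.00474) on the log2 scale. RELA (-0.08 ± 0.133), NFKB1 (0.14 ± 0.173) and NFKBIA (-0.32 ± 0.146), the core subunits and their main inhibitor, were not called. Leaving out 1 library, the count higher in FOSL1sh10 was 3 without FOSL1sh10 replicate 2 and 4 without FOSL1sh10 replicate 3. The calls lost were those of RELB (without FOSL1sh10 replicate 2), NFKB2 (without FOSL1sh10 replicate 2 or 3), TRAF1 (without FOSL1sh3 replicate 3 or FOSL1sh10 replicate 2 or 3), TRAF2 (without FOSL1sh3 replicate 1 or 2 or FOSL1sh10 replicate 2 or 3), IKBKE (without FOSL1sh3 replicate 1 or 2 or FOSL1sh10 replicate 1, 2 or 3) and NFKBIB (without FOSL1sh3 replicate 1 or 3 or FOSL1sh10 replicate 2 or 3).

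Acute phase genes held 2 of the clearest differences by size and spread. SAA1 (chr11:18266174-18269977, plus strand), an acute phase apolipoprotein, was at 236, 198 and 287 CPM in FOSL1sh3 and 999, 966 and 986 CPM in FOSL1sh10, with 162, 167 and 147 in GFPsh. For SAA1 the log2 fold change was -2.03 (SE 0.15, adjusted p = 3.29e-07). FOSL1sh3 was above the controls, and FOSL1sh10 was above FOSL1sh3 in every library. Its neighbour SAA2 was at 23.2, 16.4 and 25.9 CPM in FOSL1sh3 and 92.8, 101 and 93.1 CPM in FOSL1sh10, with 6.88, 9.21 and 10.2 in GFPsh (log2 fold change -2.13, SE 0.175, adjusted p = 9.94e-07), in the same order. The 2 genes are near-identical copies, so reads that match both are a limit on each value. The protease inhibitor SERPINA1 was at 10.9, 7.77 and 8.63 CPM in FOSL1sh3 and 13.5, 13.9 and 17.5 CPM in FOSL1sh10, with 7.02, 5.39 and 6.27 in GFPsh. Between the hairpins SERPINA1 differed by -0.71 (SE 0.211, adjusted p = 0.0323) on the log2 scale. CD55, which protects cells from complement, was at 44, 67.6 and 34.9 CPM in FOSL1sh3 and 60.9, 78.7 and 82.5 CPM in FOSL1sh10, with 89.6, 91.8 and 78.5 in GFPsh (log2 fold change -0.61, SE 0.194, adjusted p = 0.047), and its hairpin groups overlapped. The list as a whole gave 0 of 11 tested members higher in FOSL1sh3 (0%, against 5.74% of all genes) and 4 higher in FOSL1sh10 (36.4%, against 6.99%), and a median log2 fold change of -0.03. C3 (0.37 ± 0.148), CD59 (0.42 ± 0.14) and CLU (-0.03 ± 0.394) were not called. In leave-one-out fits the count higher in FOSL1sh3 was 2 without FOSL1sh3 replicate 2, while the count higher in FOSL1sh10 was 2 without FOSL1sh3 replicate 3 or FOSL1sh10 replicate 2 or 3. SERPINA1 lost its call without FOSL1sh3 replicate 2 or 3 or FOSL1sh10 replicate 2 or 3 and CD55 without GFPsh replicate 1, 2 or 3, FOSL1sh3 replicate 1 or 3 or FOSL1sh10 replicate 2 or 3.

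Interferon response genes leaned to FOSL1sh10, with 1 of 39 tested members higher in FOSL1sh3 (2.56%, against 5.74% of all genes) and 10 higher in FOSL1sh10 (25.6%, against 6.99%), and a median log2 fold change of -0.54. IRF1, a transcription factor of this response, was at 63.1, 67.1 and 61.2 CPM in FOSL1sh3 and 103, 103 and 99.7 CPM in FOSL1sh10, with 57.4, 69.8 and 54.8 in GFPsh (log2 fold change -0.68, SE 0.135, adjusted p = 0.00327). IFIT1, which binds foreign capped RNA, was at 4.5, 5.47 and 4.32 CPM in FOSL1sh3 and 14.9, 11.7 and 13.4 CPM in FOSL1sh10, with 5.64, 6.96 and 9.35 in GFPsh. For IFIT1 the log2 fold change was -1.49 (SE 0.239, adjusted p = 0.000658). Its paralog IFIT3 was at 26.7, 30.5 and 35.7 CPM in FOSL1sh3 and 67.6, 68 and 54.7 CPM in FOSL1sh10, with 35.5, 35.8 and 33.4 in GFPsh. Between the hairpins IFIT3 differed by -1.03 (SE 0.151, adjusted p = 0.000282) on the log2 scale. FOSL1sh10 was above every control library in these genes, and FOSL1sh3 was below every control library for IFIT1. IRF7 (-0.67 ± 0.176), ISG20 (-0.63 ± 0.154), IFI35 (-0.54 ± 0.141), the RNA sensors RIGI (-0.91 ± 0.251) and IFIH1 (-0.61 ± 0.176), and GBP2 (-1.09 ± 0.329) were also called higher in FOSL1sh10, and each lost its call without 1 or more libraries. IFI44 was called the other way at 10.1, 5.04 and 3.05 CPM in FOSL1sh3 and 2.85, 1.58 and 0.508 CPM in FOSL1sh10, with 9.22, 5.16 and 5.28 in GFPsh (log2 fold change 1.97, SE 0.492, adjusted p = 0.0141), a call lost without FOSL1sh3 replicate 1 or FOSL1sh10 replicate 2 or 3. Widely used interferon reporters were not called, with MX1 at -0.25 ± 0.159, ISG15 at -0.31 ± 0.157, OAS1 at 0.25 ± 0.17 and STAT2 at 0.20 ± 0.236. When 1 library was dropped, the count higher in FOSL1sh10 was 6 without FOSL1sh10 replicate 1 or 3.

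The interferon-stimulated response element, searched on both strands as GAAA, 2 free bases and GAAA, was in 2.67% of all windows and in 64.5% (20 of 31) of windows of the interferon list, whether or not the gene was called. Among genes higher by at least 1 it was in 4.4% (11 of 250) for FOSL1sh10 and 4.07% (5 of 123) for FOSL1sh3. IFIT1 and IFIT3, the 2 list members with the largest differences that kept their call in every setting tried, are shown with 1 match each, the reverse complement of the letters being in capitals.
IFIT1 (chr10:89392487-89392536, plus strand, capitals 116 to 107 bases before the start): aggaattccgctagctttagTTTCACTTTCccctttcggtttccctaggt
IFIT3 (chr10:89327855-89327904, plus strand, capitals 122 to 113 bases before the start): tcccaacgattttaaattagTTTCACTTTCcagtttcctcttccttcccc

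Genes of class II antigen presentation, by which cells show peptides to helper T cells, leaned to FOSL1sh10. CD74 (chr5:150401637-150412929, minus strand), the invariant chain that guides class II molecules, was at 30.9, 31.7 and 23.9 CPM in FOSL1sh3 and 119, 161 and 145 CPM in FOSL1sh10, with 29.9, 27.5 and 33.6 in GFPsh. The difference for CD74 was -2.30 (SE 0.161, adjusted p = 2.96e-07) on the log2 scale. FOSL1sh3 overlapped the controls and every FOSL1sh10 library was above them. HLA-DRB1, a class II beta chain, was at 0.512, 1.01 and 1.02 CPM in FOSL1sh3 and 8.68, 8.01 and 9.86 CPM in FOSL1sh10, with 2.06, 0.898 and 2.09 in GFPsh (log2 fold change -3.41, SE 0.376, adjusted p = 1.56e-05). HLA-DPA1 was at 0.205, 0.432 and 1.27 CPM in FOSL1sh3 and 5.55, 6.99 and 4.68 CPM in FOSL1sh10, with 1.24, 0.786 and 1.43 in GFPsh. Between the hairpins HLA-DPA1 differed by -3.19 (SE 0.476, adjusted p = 0.000351) on the log2 scale, a fold that rests on few reads in FOSL1sh3. HLA-DRA had few reads, with 0, 4 and 1 reads in FOSL1sh3, 15, 18 and 40 in FOSL1sh10 and 7, 4 and 7 in GFPsh (log2 fold change -3.65, SE 0.688, adjusted p = 0.00237). The lysosomal protease CTSS, which trims the invariant chain, was at 6.76, 6.19 and 2.28 CPM in FOSL1sh3 and 18.5, 15.5 and 17 CPM in FOSL1sh10, with 5.64, 7.41 and 9.13 in GFPsh (log2 fold change -1.73, SE 0.292, adjusted p = 0.00102), and the peptide loader HLA-DMA was at 11.4, 8.63 and 6.73 CPM in FOSL1sh3 and 16.1, 14.6 and 16.4 CPM in FOSL1sh10, with 6.88, 8.31 and 8.69 in GFPsh. The difference for HLA-DMA was -0.80 (SE 0.215, adjusted p = 0.0204) on the log2 scale. HLA-DMA shares exon bases with the more abundant BRD2 on the opposite strand, and HLA-DRB1 has near-identical copies. The list gave 0 of 10 tested members higher in FOSL1sh3 (0%, against 5.74% of all genes) and 6 higher in FOSL1sh10 (60%, against 6.99%), and a median log2 fold change of -1.70. HLA-DRA and HLA-DRB1 passed the expression filter (minimum count 10) only through their FOSL1sh10 libraries. A call the other way was thus not open to them. Both enter the count and the median but do not count as support for the lean. Of 17 listed genes 10 passed the filter. CIITA, the master activator of class II genes, was not called (-1.67, SE 0.56, adjusted p = 0.058), nor was its partner RFX5 (-0.26 ± 0.284). The call of HLA-DMA was lost without FOSL1sh3 replicate 3 or FOSL1sh10 replicate 1, 2 or 3.

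Class I and its peptide supply gave 0 of 19 tested members higher in FOSL1sh3 (0%, against 5.74% of all genes) and 4 higher in FOSL1sh10 (21.1%, against 6.99%), and a median log2 fold change of -0.31. PSMB9, an immunoproteasome subunit, was at 61.1, 50.8 and 56.2 CPM in FOSL1sh3 and 116, 104 and 110 CPM in FOSL1sh10, with 47.9, 47.8 and 44 in GFPsh. For PSMB9 the log2 fold change was -0.97 (SE 0.132, adjusted p = 0.000151). The non-classical HLA-F was at 56.5, 48.6 and 43 CPM in FOSL1sh3 and 72.4, 85.7 and 83.2 CPM in FOSL1sh10, with 50.5, 52.8 and 43.4 in GFPsh (log2 fold change -0.70, SE 0.145, adjusted p = 0.00406). In both genes all FOSL1sh10 libraries were above all others. The transporter subunit TAP2 (-0.48 ± 0.145) and the folding enzyme PDIA3 (-0.56 ± 0.169) were called, with calls lost without GFPsh replicate 1, FOSL1sh3 replicate 1 or 2 or FOSL1sh10 replicate 2 or 3 for TAP2 and without GFPsh replicate 1, FOSL1sh3 replicate 3 or FOSL1sh10 replicate 1, 2 or 3 for PDIA3. Over fits lacking 1 library, the count higher in FOSL1sh10 was 2 without GFPsh replicate 1 or FOSL1sh10 replicate 2 or 3. Leukocyte markers summed to 23.3 to 34.7 CPM in FOSL1sh3, 31.3 to 37 CPM in FOSL1sh10 and 23.4 to 29.3 CPM in GFPsh. Of 3 markers tested, CORO1A, an actin regulator, was called (-0.96, SE 0.22, adjusted p = 0.00822). LAPTM5 (68 to 142 reads a library) and CD14 (26 to 86) were also counted in every library. The general leukocyte marker PTPRC was at or near 0 in every library, as was LYZ.

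**Figure D3:**
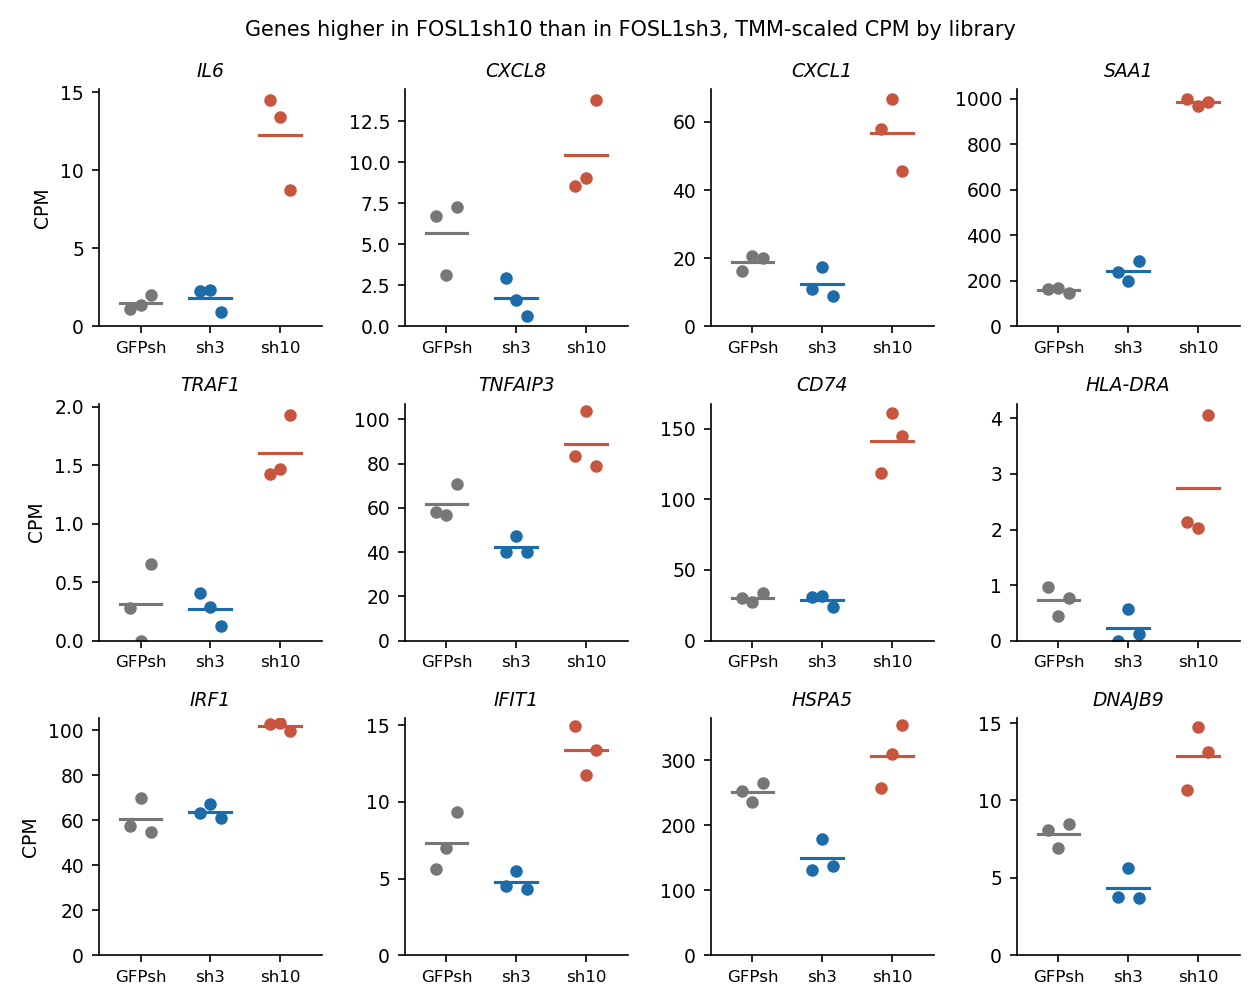
TMM-scaled CPM in each library (points) and group mean (line) for 12 genes that were higher in FOSL1sh10: mediators, SAA1, NF-kB feedback, class II, interferon and endoplasmic reticulum folding genes. FOSL1sh10 points lie above all FOSL1sh3 points in each panel, while the control lies near FOSL1sh3 for IL6 and CD74 and between the hairpins for TNFAIP3 and IFIT1.

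Of folding and stress genes of the endoplasmic reticulum (ER), 9 of 28 were called, all higher in FOSL1sh10. The list gave 0 of 28 tested members higher in FOSL1sh3 (0%, against 5.74% of all genes) and 9 higher in FOSL1sh10 (32.1%, against 6.99%), and a median log2 fold change of -0.34. Its median estimate against GFPsh was -0.24 for FOSL1sh3 and 0.11 for FOSL1sh10. HSPA5, the chaperone BiP, was at 131, 179 and 138 CPM in FOSL1sh3 and 258, 309 and 354 CPM in FOSL1sh10, with 252, 236 and 266 in GFPsh. The difference for HSPA5 was -1.04 (SE 0.155, adjusted p = 0.00033) on the log2 scale. DNAJB11, a partner of BiP, was at 45.1, 48.6 and 43.8 CPM in FOSL1sh3 and 79.97, 94.4 and 95.9 CPM in FOSL1sh10, with 96.7, 95.1 and 107 in GFPsh. For DNAJB11 the log2 fold change was -0.98 (SE 0.135, adjusted p = 0.000176). For both, FOSL1sh3 was below all controls and FOSL1sh10 overlapped them. DNAJB9, a co-chaperone that rises when ER folding is overloaded, was at 3.79, 5.61 and 3.68 CPM in FOSL1sh3 and 10.7, 14.8 and 13.1 CPM in FOSL1sh10, with 8.12, 6.96 and 8.47 in GFPsh (log2 fold change -1.57, SE 0.24, adjusted p = 0.00041), with the hairpins on opposite sides of the controls. DNAJB9 shares exon bases with 2 genes on the opposite strand. PPP1R15A, which reverses the translation block of the stress response, was at 40.2, 31.2 and 30.3 CPM in FOSL1sh3 and 56.8, 59.8 and 53.3 CPM in FOSL1sh10, with 42.1, 38.4 and 28.1 in GFPsh. Between the hairpins PPP1R15A differed by -0.73 (SE 0.166, adjusted p = 0.00766) on the log2 scale. The oxidase ERO1A (-0.87 ± 0.20), the kinase PERK gene EIF2AK3 (-1.45 ± 0.388), DNAJC3 (-0.69 ± 0.175), CANX (-0.49 ± 0.143) and PDIA3 made up the rest. With 1 library left out the count higher in FOSL1sh10 was 4 without FOSL1sh10 replicate 2 and 5 without FOSL1sh10 replicate 3.

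The ATF4 and amino acid list gave 0 of 27 tested members higher in FOSL1sh3 (0%, against 5.74% of all genes) and 7 higher in FOSL1sh10 (25.9%, against 6.99%), and a median log2 fold change of -0.22, beside ATF3 above. PSAT1, an enzyme of serine synthesis, was at 85.7, 88.9 and 66 CPM in FOSL1sh3 and 127, 134 and 142 CPM in FOSL1sh10, with 98.2, 90.4 and 132 in GFPsh (log2 fold change -0.75, SE 0.161, adjusted p = 0.00557). STC2, a secreted hormone induced under stress, was at 16.7, 11.8 and 11.4 CPM in FOSL1sh3 and 22.2, 28.5 and 23.6 CPM in FOSL1sh10, with 21.5, 22.3 and 19.9 in GFPsh. For STC2 the log2 fold change was -0.89 (SE 0.188, adjusted p = 0.0049). PHGDH, the first enzyme of serine synthesis, was higher than the controls with both hairpins, at 18, 15.1 and 23.2 CPM in FOSL1sh3 and 25.9, 31.8 and 29 CPM in FOSL1sh10, with 11.8, 11.1 and 13.3 in GFPsh. Between the hairpins PHGDH differed by -0.62 (SE 0.183, adjusted p = 0.0323) on the log2 scale. MTHFD2 (-0.77 ± 0.203), the pseudokinase TRIB3 (-0.48 ± 0.138), the glycine transporter SLC6A9 (-1.04 ± 0.325) and NARS1 (-0.64 ± 0.181) were called as well, and these 4 and PHGDH each lost the call without 1 or more libraries. Leaving out 1 library, the count higher in FOSL1sh10 was 2 without FOSL1sh10 replicate 3 and 3 without FOSL1sh10 replicate 2.

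Cytosolic heat shock genes gave 1 of 22 tested members higher in FOSL1sh3 (4.55%, against 5.74% of all genes) and 4 higher in FOSL1sh10 (18.2%, against 6.99%), and a median log2 fold change of -0.19. The small heat shock protein HSPB1 was at 108, 85.2 and 81.9 CPM in FOSL1sh3 and 143, 151 and 159 CPM in FOSL1sh10, with 94.3, 89 and 82.2 in GFPsh (log2 fold change -0.72, SE 0.14, adjusted p = 0.00297), while the co-chaperone BAG1 was higher in FOSL1sh3 at 174, 158 and 204 CPM in FOSL1sh3 and 122, 104 and 117 CPM in FOSL1sh10, with 133, 148 and 151 in GFPsh. The difference for BAG1 was 0.65 (SE 0.138, adjusted p = 0.00515) on the log2 scale. DNAJA1 (-0.44 ± 0.132), DNAJB6 (-0.46 ± 0.131) and CHORDC1 (-0.69 ± 0.209) were close to the threshold. In leave-one-out fits the count higher in FOSL1sh3 was 2 without FOSL1sh3 replicate 1, while the count higher in FOSL1sh10 was 1 without FOSL1sh3 replicate 3 or FOSL1sh10 replicate 2 or 3 and 2 without GFPsh replicate 1 or FOSL1sh10 replicate 1.

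Epithelial identity genes split between the hairpins. Simple epithelial and biliary genes gave 1 of 21 tested members higher in FOSL1sh3 (4.76%, against 5.74% of all genes) and 7 higher in FOSL1sh10 (33.3%, against 6.99%), and a median log2 fold change of -0.30. SOX9, the duct lineage factor, was at 37.3, 41 and 29.96 CPM in FOSL1sh3 and 58.9, 60.1 and 69.1 CPM in FOSL1sh10, with 51.2, 48.4 and 48.8 in GFPsh (log2 fold change -0.80, SE 0.146, adjusted p = 0.00189), with FOSL1sh3 below and FOSL1sh10 above all controls. The intestinal-type keratin KRT20 was at 69.4, 116 and 91.4 CPM in FOSL1sh3 and 201, 240 and 274 CPM in FOSL1sh10, with 130, 128 and 184 in GFPsh (log2 fold change -1.37, SE 0.189, adjusted p = 0.000169), in the same order. KRT19, the duct keratin, ran the other way at 5148, 4773 and 5142 CPM in FOSL1sh3 and 3529, 3112 and 4001 CPM in FOSL1sh10, with 4058, 4306 and 4054 in GFPsh (log2 fold change 0.50, SE 0.139, adjusted p = 0.0243). EPCAM (-0.49 ± 0.147), SOX4 (-0.59 ± 0.168), FOXA1 (-0.89 ± 0.267), GATA6 (-1.07 ± 0.285) and ELF3 (-0.41 ± 0.132) were higher in FOSL1sh10, and all of them and KRT19 lost the call without 1 or more libraries. When 1 library was dropped, the count higher in FOSL1sh10 was 2 without FOSL1sh3 replicate 1 or FOSL1sh10 replicate 2 or 3 and 4 without GFPsh replicate 1 or FOSL1sh10 replicate 1. Junction genes gave 0 of 24 tested members higher in FOSL1sh3 (0%, against 5.74% of all genes) and 4 higher in FOSL1sh10 (16.7%, against 6.99%), and a median log2 fold change of -0.22. The tight junction protein CLDN1 was at 66.3, 89.8 and 41.1 CPM in FOSL1sh3 and 113, 144 and 135 CPM in FOSL1sh10, with 106, 98.2 and 60.6 in GFPsh. Between the hairpins CLDN1 differed by -0.99 (SE 0.23, adjusted p = 0.00903) on the log2 scale. ESRP1 (-0.64 ± 0.165), the splicing factor of epithelia, CTNND1 (-0.65 ± 0.193) and PARD3 (-0.43 ± 0.139) were also called. Over fits lacking 1 library, the count higher in FOSL1sh10 was 1 without FOSL1sh10 replicate 2 or 3 (junction genes).

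Mucins and trefoil factors leaned to FOSL1sh3, with 5 of 11 tested members higher in FOSL1sh3 (45.5%, against 5.74% of all genes) and 1 higher in FOSL1sh10 (9.09%, against 6.99%), and a median log2 fold change of 0.41. MUC5AC (chr11:1157953-1201138, plus strand), a gel-forming mucin of stomach and airway type, was at 16.3, 17.7 and 21.6 CPM in FOSL1sh3 and 2.85, 4.29 and 1.73 CPM in FOSL1sh10, with 4.13, 5.95 and 4.95 in GFPsh. The difference for MUC5AC was 2.65 (SE 0.281, adjusted p = 1.03e-05) on the log2 scale. FOSL1sh3 was above every control library and FOSL1sh10 overlapped the controls. MUC5B, its gel-forming neighbour on chromosome 11, was at 3.99, 6.62 and 6.85 CPM in FOSL1sh3 and 2.13, 0.564 and 1.42 CPM in FOSL1sh10, with 0.826, 2.47 and 2.31 in GFPsh. For MUC5B the log2 fold change was 2.10 (SE 0.443, adjusted p = 0.00488). MUC1, a membrane mucin, was at 384, 375 and 506 CPM in FOSL1sh3 and 237, 227 and 270 CPM in FOSL1sh10, with 212, 244 and 229 in GFPsh (log2 fold change 0.78, SE 0.146, adjusted p = 0.0022), and the intestinal gel-forming MUC2 was at 3.58, 3.89 and 5.08 CPM in FOSL1sh3 and 1.71, 1.92 and 1.73 CPM in FOSL1sh10, with 1.51, 2.25 and 1.1 in GFPsh (log2 fold change 1.22, SE 0.354, adjusted p = 0.0301). In all 4 mucins FOSL1sh3 alone was above the controls. TFF1, a trefoil peptide secreted with mucus, was at 48.8, 36.1 and 52.7 CPM in FOSL1sh3 and 30.3, 30.2 and 31.4 CPM in FOSL1sh10, with 46.9, 45.9 and 44.5 in GFPsh. The difference for TFF1 was 0.58 (SE 0.153, adjusted p = 0.0187) on the log2 scale. The membrane mucin MUC13 was higher in FOSL1sh10 at 7.47, 8.92 and 8.12 CPM in FOSL1sh3 and 12.7, 12.5 and 14.7 CPM in FOSL1sh10, with 11.6, 11.3 and 13 in GFPsh. For MUC13 the log2 fold change was -0.71 (SE 0.195, adjusted p = 0.0233). MUC4 (-0.38 ± 0.20) and MUC16 (0.22 ± 0.233) were not called. MUC2 and TFF1 fell short of the threshold with library totals alone or with the GC trend removed. MUC13 lost its call with the GC trend removed and without 1 or more libraries. With 1 library left out the count higher in FOSL1sh3 was 3 without FOSL1sh10 replicate 1, 2 or 3.

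PSCA, a surface antigen of mucosal epithelia, was high throughout, at 1418, 939 and 1285 CPM in FOSL1sh3 and 328, 253 and 407 CPM in FOSL1sh10, with 612, 555 and 514 in GFPsh (log2 fold change 1.88, SE 0.184, adjusted p = 4.97e-06), with the hairpins on opposite sides of the controls. BEST2, a chloride channel of secretory epithelia, was at 20.7, 20.3 and 31.7 CPM in FOSL1sh3 and 2.28, 4.06 and 4.27 CPM in FOSL1sh10, with 6.05, 5.84 and 5.5 in GFPsh (log2 fold change 2.75, SE 0.255, adjusted p = 3.06e-06), and SFTA2, a secreted surfactant-associated protein, at 47.4, 43.9 and 47.3 CPM in FOSL1sh3 and 18.2, 9.48 and 11.8 CPM in FOSL1sh10, with 39.5, 49.1 and 45.3 in GFPsh. Between the hairpins SFTA2 differed by 1.83 (SE 0.197, adjusted p = 1.2e-05) on the log2 scale. Here FOSL1sh3 overlapped the controls for SFTA2 and lay above them for BEST2, while FOSL1sh10 was below the controls for both.

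Keratinocyte and squamous genes did not move as 1 group, with 7 of 27 tested members higher in FOSL1sh3 (25.9%, against 5.74% of all genes) and 5 higher in FOSL1sh10 (18.5%, against 6.99%), and a median log2 fold change of 0.05. The median turned to -0.12 with library totals alone. KRT5, the basal keratin, was at 163, 157 and 156 CPM in FOSL1sh3 and 386, 429 and 451 CPM in FOSL1sh10, with 131, 115 and 115 in GFPsh (log2 fold change -1.41, SE 0.131, adjusted p = 3.06e-06), with both hairpins above the controls. SERPINB2, a protease inhibitor of stressed keratinocytes, was at 72.2, 92.8 and 56.1 CPM in FOSL1sh3 and 244, 289 and 227 CPM in FOSL1sh10, with 183, 136 and 153 in GFPsh (log2 fold change -1.78, SE 0.178, adjusted p = 5.86e-06), with the hairpins on opposite sides of the controls. KRT6B, a keratin of activated epithelium with near-identical copies, was at 7.06, 10.4 and 11.9 CPM in FOSL1sh3 and 15.8, 22.1 and 24.6 CPM in FOSL1sh10, with 5.09, 3.26 and 2.64 in GFPsh (log2 fold change -1.10, SE 0.248, adjusted p = 0.00736). In contrast KRT13, a keratin of suprabasal mucosa, was higher in FOSL1sh3 at 35.9, 56.1 and 55 CPM in FOSL1sh3 and 20.2, 14.6 and 14.3 CPM in FOSL1sh10, with 22.3, 29.6 and 23.5 in GFPsh. For KRT13 the log2 fold change was 1.59 (SE 0.201, adjusted p = 7.11e-05). The cornified envelope genes SPRR3 (41.3, 38.3 and 37.1 CPM in FOSL1sh3 and 23.1, 16 and 23.8 CPM in FOSL1sh10, with 27.2, 24.5 and 27.7 in GFPsh, log2 fold change 0.89, SE 0.169, adjusted p = 0.00243) and TGM1 (29, 16.3 and 15.9 CPM in FOSL1sh3 and 8.4, 9.03 and 6.61 CPM in FOSL1sh10, with 8.12, 12 and 6.49 in GFPsh, log2 fold change 1.36, SE 0.267, adjusted p = 0.00302) followed KRT13. TRIM29, a marker of stratified epithelia, was at 234, 182 and 302 CPM in FOSL1sh3 and 135, 113 and 143 CPM in FOSL1sh10, with 161, 166 and 141 in GFPsh. Between the hairpins TRIM29 differed by 0.88 (SE 0.167, adjusted p = 0.00253) on the log2 scale. DSC2 (-0.97 ± 0.224) and SFN (-0.55 ± 0.146) were higher in FOSL1sh10 and LY6D (0.81 ± 0.199), KLK10 (0.79 ± 0.226) and PI3 (0.55 ± 0.169) higher in FOSL1sh3, and these 5 lost the call without 1 or more libraries. Leaving out 1 library, the count higher in FOSL1sh3 was 4 without FOSL1sh10 replicate 2, while the count higher in FOSL1sh10 was 3 without FOSL1sh10 replicate 2.

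Genes of hemidesmosomes, which anchor epithelia to laminin, leaned to FOSL1sh3, with 7 of 15 tested members higher in FOSL1sh3 (46.7%, against 5.74% of all genes) and 1 higher in FOSL1sh10 (6.67%, against 6.99%), and a median log2 fold change of 0.37. ITGB4 (chr17:75721328-75757818, plus strand), the integrin chain specific to this junction, was at 587, 474 and 562 CPM in FOSL1sh3 and 244, 248 and 236 CPM in FOSL1sh10, with 203, 209 and 183 in GFPsh. The difference for ITGB4 was 1.16 (SE 0.134, adjusted p = 2.56e-05) on the log2 scale. Both hairpins were above the controls and FOSL1sh3 was the higher. ITGA3, a laminin-binding integrin chain, was at 560, 575 and 623 CPM in FOSL1sh3 and 302, 319 and 281 CPM in FOSL1sh10, with 377, 318 and 314 in GFPsh (log2 fold change 0.96, SE 0.134, adjusted p = 0.000182). The linker PLEC was at 535, 716 and 951 CPM in FOSL1sh3 and 411, 433 and 426 CPM in FOSL1sh10, with 418, 373 and 395 in GFPsh. Between the hairpins PLEC differed by 0.79 (SE 0.169, adjusted p = 0.00504) on the log2 scale. COL17A1, the transmembrane collagen of the junction, was below the controls with both hairpins and lower in FOSL1sh10, at 43.3, 43.6 and 42.5 CPM in FOSL1sh3 and 28, 28.1 and 24.9 CPM in FOSL1sh10, with 52.6, 57.9 and 50.2 in GFPsh. The difference for COL17A1 was 0.68 (SE 0.139, adjusted p = 0.00393) on the log2 scale. LAMA5, a basement membrane laminin chain, was at 220, 234 and 290 CPM in FOSL1sh3 and 133, 155 and 156 CPM in FOSL1sh10, with 155, 169 and 157 in GFPsh. For LAMA5 the log2 fold change was 0.74 (SE 0.141, adjusted p = 0.00246). LAMB2 (1.09 ± 0.28) and CD151 (0.44 ± 0.139) were also higher in FOSL1sh3. The cytoplasmic linker DST was higher in FOSL1sh10 (-0.66, SE 0.174, adjusted p = 0.0189). The laminin-332 chains LAMA3 (0.20 ± 0.129) and LAMB3 (0.37 ± 0.137) and the partner chain ITGA6 (0.02 ± 0.173) were not called. The call of PLEC was lost with the GC trend removed (adjusted p = 0.0636), and those of LAMB2, CD151 and DST without 1 or more libraries.

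Matrix and matricellular genes gave 1 of 15 tested members higher in FOSL1sh3 (6.67%, against 5.74% of all genes) and 3 higher in FOSL1sh10 (20%, against 6.99%), and a median log2 fold change of -0.12. TNC, a matrix protein of remodelling tissue, was at 11, 8.63 and 9.65 CPM in FOSL1sh3 and 35.7, 38.5 and 26.5 CPM in FOSL1sh10, with 25.9, 28.9 and 26.2 in GFPsh (log2 fold change -1.77, SE 0.185, adjusted p = 9.97e-06), with FOSL1sh3 below the controls. THBS1, an activator of latent TGF-beta, was at 96.2, 93.8 and 88.6 CPM in FOSL1sh3 and 143, 171 and 136 CPM in FOSL1sh10, with 92.6, 91 and 81 in GFPsh (log2 fold change -0.69, SE 0.135, adjusted p = 0.00297). FBLN1, a basement membrane fibulin, was higher in FOSL1sh3 at 231, 202 and 267 CPM in FOSL1sh3 and 101, 86.3 and 108 CPM in FOSL1sh10, with 94.9, 93 and 106 in GFPsh. The difference for FBLN1 was 1.24 (SE 0.145, adjusted p = 2.61e-05) on the log2 scale. CCN1, a matricellular YAP target, was higher in FOSL1sh10 (-0.69, SE 0.173, adjusted p = 0.0149), a call lost without FOSL1sh3 replicate 3 or FOSL1sh10 replicate 2. In leave-one-out fits the count higher in FOSL1sh3 was 2 without FOSL1sh3 replicate 3.

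Genes of plasminogen activation, metalloproteinases and other proteases, some often listed as AP-1 targets, split between the hairpins. Their list gave 3 of 28 tested members higher in FOSL1sh3 (10.7%, against 5.74% of all genes) and 5 higher in FOSL1sh10 (17.9%, against 6.99%). The median log2 fold change was -0.07, with 15 members negative and 13 positive. The urokinase gene PLAU was at 179, 191 and 185 CPM in FOSL1sh3 and 334, 374 and 347 CPM in FOSL1sh10, with 155, 134 and 180 in GFPsh. For PLAU the log2 fold change was -0.93 (SE 0.138, adjusted p = 0.00033). Its receptor PLAUR was at 151, 118 and 118 CPM in FOSL1sh3 and 193, 205 and 196 CPM in FOSL1sh10, with 123, 125 and 109 in GFPsh. Between the hairpins PLAUR differed by -0.61 (SE 0.137, adjusted p = 0.00713) on the log2 scale. In both genes FOSL1sh10 alone was above the controls. The epithelial metalloproteinase MMP28 was higher in FOSL1sh3 at 21.3, 23.9 and 29.3 CPM in FOSL1sh3 and 11.5, 11.2 and 9.86 CPM in FOSL1sh10, with 14.7, 19.2 and 14.7 in GFPsh (log2 fold change 1.19, SE 0.191, adjusted p = 0.000654), and the lysosomal protease CTSD at 647, 649 and 698 CPM in FOSL1sh3 and 455, 409 and 452 CPM in FOSL1sh10, with 428, 407 and 345 in GFPsh (log2 fold change 0.60, SE 0.133, adjusted p = 0.0069). SERPINE2 (-0.88 ± 0.204), ADAM8 (-0.71 ± 0.18) and ADAM19 (-1.32 ± 0.322) were higher in FOSL1sh10 and lost the call without 1 or more libraries. When 1 library was dropped, the count higher in FOSL1sh10 was 3 without FOSL1sh3 replicate 1 or FOSL1sh10 replicate 3.

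Mesenchymal genes gave 3 of 15 tested members higher in FOSL1sh3 (20%, against 5.74% of all genes) and 2 higher in FOSL1sh10 (13.3%, against 6.99%), and a median log2 fold change of -0.11, and the members that moved differ in kind. The contractile genes TAGLN (4.5, 4.6 and 2.41 CPM in FOSL1sh3 and 1.28, 0.677 and 0.813 CPM in FOSL1sh10, with 1.65, 2.47 and 1.98 in GFPsh, log2 fold change 2.07, SE 0.416, adjusted p = 0.00341), MYL9 (27.5, 17.6 and 19.4 CPM in FOSL1sh3 and 9.96, 5.98 and 7.22 CPM in FOSL1sh10, with 12.2, 12.2 and 11.2 in GFPsh, log2 fold change 1.5, SE 0.226, adjusted p = 0.000381) and TPM2 (222, 216 and 222 CPM in FOSL1sh3 and 137, 124 and 136 CPM in FOSL1sh10, with 141, 142 and 120 in GFPsh, log2 fold change 0.73, SE 0.129, adjusted p = 0.0014) were higher in FOSL1sh3. The filament gene VIM was lower in FOSL1sh3, at 2.05, 1.58 and 1.14 CPM in FOSL1sh3 and 3.27, 6.09 and 5.997 CPM in FOSL1sh10, with 7.57, 4.94 and 3.85 in GFPsh (log2 fold change -1.67, SE 0.37, adjusted p = 0.00663), as was the factor SNAI1 (-1.25, SE 0.337, adjusted p = 0.0209), whose call was lost without FOSL1sh3 replicate 2 or FOSL1sh10 replicate 1 or 2. TAGLN shares exon bases with the more abundant PCSK7 on the opposite strand. Of 2 tested fibroblast and endothelial markers none was called, with COL1A1 at -0.22 ± 0.321 and ENG at 0.04 ± 0.18, and DESeq2 and limma-voom called neither of them.

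Ligands and output of the ERBB and ERK pathways differed gene by gene. Ligands and receptors gave 2 of 16 tested members higher in FOSL1sh3 (12.5%, against 5.74% of all genes) and 2 higher in FOSL1sh10 (12.5%, against 6.99%), and a median log2 fold change of -0.04. EREG, an EGF receptor ligand, was at 37.7, 54.7 and 44.9 CPM in FOSL1sh3 and 79.4, 124 and 95 CPM in FOSL1sh10, with 65.5, 52.1 and 57.3 in GFPsh (log2 fold change -1.13, SE 0.176, adjusted p = 0.000518), and NRG1, an ERBB3 ligand, at 2.66, 2.88 and 1.4 CPM in FOSL1sh3 and 5.69, 6.88 and 7.22 CPM in FOSL1sh10, with 7.71, 5.73 and 6.38 in GFPsh. For NRG1 the log2 fold change was -1.51 (SE 0.299, adjusted p = 0.00314). GAS6, the ligand of AXL, was higher in FOSL1sh3 at 95.4, 99.9 and 122 CPM in FOSL1sh3 and 63.7, 50.7 and 62.2 CPM in FOSL1sh10, with 60.7, 66.6 and 60.6 in GFPsh (log2 fold change 0.85, SE 0.144, adjusted p = 0.00109), and TGFA (0.46 ± 0.133) was called near the threshold. Over fits lacking 1 library, the count higher in FOSL1sh3 was 1 without FOSL1sh3 replicate 3 or FOSL1sh10 replicate 1, 2 or 3, while the count higher in FOSL1sh10 was 4 without FOSL1sh3 replicate 2. ERK output gave 1 of 25 tested members higher in FOSL1sh3 (4%, against 5.74% of all genes) and 5 higher in FOSL1sh10 (20%, against 6.99%), and a median log2 fold change of -0.13. KLF4, an epithelial factor that responds early to stimuli, was at 37.4, 52.1 and 29.8 CPM in FOSL1sh3 and 77.5, 99.5 and 90.2 CPM in FOSL1sh10, with 49.4, 40.2 and 41.8 in GFPsh. Between the hairpins KLF4 differed by -1.17 (SE 0.178, adjusted p = 0.00041) on the log2 scale. EGR1, an immediate early factor, ran the other way at 10.1, 16.7 and 9.65 CPM in FOSL1sh3 and 5.69, 3.95 and 3.86 CPM in FOSL1sh10, with 7.02, 6.29 and 5.61 in GFPsh. The difference for EGR1 was 1.44 (SE 0.266, adjusted p = 0.00211) on the log2 scale. The feedback inhibitors SPRY1 (-0.91 ± 0.23) and SPRY2 (-0.89 ± 0.254), the survival regulator PHLDA1 (-0.56, SE 0.125, adjusted p = 0.00687) and TMEM158 (-0.91 ± 0.242) were higher in FOSL1sh10. SPRY1, SPRY2, TMEM158 and TGFA lost the call without 1 or more libraries. With 1 library left out the count higher in FOSL1sh3 was 2 without GFPsh replicate 3 or FOSL1sh3 replicate 1, while the count higher in FOSL1sh10 was 3 without FOSL1sh3 replicate 1 or FOSL1sh10 replicate 2 or 3 (ERK output).

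YAP and TGF-beta genes gave 3 of 30 tested members higher in FOSL1sh3 (10%, against 5.74% of all genes) and 6 higher in FOSL1sh10 (20%, against 6.99%), and a median log2 fold change of -0.04. WWTR1, which encodes the YAP partner TAZ, was at 21.2, 23.2 and 20.4 CPM in FOSL1sh3 and 35.4, 35.9 and 40.04 CPM in FOSL1sh10, with 27.9, 28.5 and 32.1 in GFPsh (log2 fold change -0.78, SE 0.15, adjusted p = 0.00265). TGFB2, a TGF-beta ligand, was at 2.87, 2.73 and 1.9 CPM in FOSL1sh3 and 5.83, 6.66 and 6.61 CPM in FOSL1sh10, with 4.54, 3.59 and 2.86 in GFPsh (log2 fold change -1.34, SE 0.293, adjusted p = 0.00616), and the homeobox repressor TGIF1 at 38.2, 50.4 and 27.8 CPM in FOSL1sh3 and 66.4, 63.9 and 64.4 CPM in FOSL1sh10, with 46.9, 36.8 and 40.8 in GFPsh. Between the hairpins TGIF1 differed by -0.75 (SE 0.177, adjusted p = 0.0104) on the log2 scale. BHLHE40, a clock-linked repressor, was at 6.86, 13.4 and 9.77 CPM in FOSL1sh3 and 20.8, 25.2 and 20.4 CPM in FOSL1sh10, with 22, 15.9 and 16.9 in GFPsh. The difference for BHLHE40 was -1.16 (SE 0.226, adjusted p = 0.00288) on the log2 scale. ID1, a target of BMP signalling, was higher in FOSL1sh3 at 293, 216 and 262 CPM in FOSL1sh3 and 150, 134 and 134 CPM in FOSL1sh10, with 191, 245 and 172 in GFPsh. For ID1 the log2 fold change was 0.88 (SE 0.157, adjusted p = 0.00142). SMAD6 (0.66 ± 0.18), an inhibitor of that pathway, and TGFBR1 (-1.01 ± 0.283) were called and lost the call without 1 or more libraries, as did CCN1. Leaving out 1 library, the count higher in FOSL1sh3 was 1 without FOSL1sh10 replicate 1.

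MTOR was 1 of the genes that parted most. MTOR (chr1:11106535-11262507, minus strand), the kinase that couples nutrients to growth, was at 10.2, 16 and 11 CPM in FOSL1sh3 and 48.4, 48.2 and 56.8 CPM in FOSL1sh10, with 38.3, 45.8 and 54.8 in GFPsh (log2 fold change -2.05, SE 0.19, adjusted p = 3.06e-06). FOSL1sh3 was below every control library and FOSL1sh10 overlapped the controls. Over the complex and pathway genes the list gave 2 of 29 tested members higher in FOSL1sh3 (6.9%, against 5.74% of all genes) and 3 higher in FOSL1sh10 (10.3%, against 6.99%), and a median log2 fold change of 0.00. EIF4EBP2, a translation repressor that mTOR inhibits, was at 25.2, 30.1 and 30.2 CPM in FOSL1sh3 and 15.9, 9.93 and 14.4 CPM in FOSL1sh10, with 28.5, 31 and 33.2 in GFPsh (log2 fold change 1.09, SE 0.186, adjusted p = 0.00114), with FOSL1sh10 below the controls. RRAGC (0.73 ± 0.185), a GTPase that brings mTOR to lysosomes, was higher in FOSL1sh3, and PRR5L (-0.60 ± 0.166) and RPS6KB1 (-0.59 ± 0.176) were higher in FOSL1sh10. The last 3 lost the call without 1 or more libraries. In leave-one-out fits the count higher in FOSL1sh3 was 1 without FOSL1sh3 replicate 1 or FOSL1sh10 replicate 2, while the count higher in FOSL1sh10 was 1 without FOSL1sh3 replicate 3 or FOSL1sh10 replicate 2 or 3.

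p53 targets gave 1 of 26 tested members higher in FOSL1sh3 (3.85%, against 5.74% of all genes) and 6 higher in FOSL1sh10 (23.1%, against 6.99%), and a median log2 fold change of -0.14. CDKN1A, the p21 cell cycle inhibitor, was below the controls with both hairpins and lower in FOSL1sh3, at 123, 109 and 123 CPM in FOSL1sh3 and 199, 233 and 216 CPM in FOSL1sh10, with 251, 234 and 262 in GFPsh. The difference for CDKN1A was -0.87 (SE 0.131, adjusted p = 0.000381) on the log2 scale. CCNG1, a cyclin of the p53 response, was at 2.66, 5.61 and 2.54 CPM in FOSL1sh3 and 11.5, 17.7 and 9.35 CPM in FOSL1sh10, with 16.6, 19.2 and 10.9 in GFPsh. For CCNG1 the log2 fold change was -1.86 (SE 0.325, adjusted p = 0.00131). GADD45A, a DNA damage and stress sensor, was at 81.2, 130 and 86.1 CPM in FOSL1sh3 and 225, 243 and 176 CPM in FOSL1sh10, with 185, 171 and 224 in GFPsh. Between the hairpins GADD45A differed by -1.12 (SE 0.182, adjusted p = 0.000784) on the log2 scale. For CCNG1 and GADD45A only FOSL1sh3 was below the controls. TP53I3, a quinone oxidoreductase, was higher in FOSL1sh3 at 242, 167 and 251 CPM in FOSL1sh3 and 93.8, 82.4 and 99 CPM in FOSL1sh10, with 116, 120 and 114 in GFPsh (log2 fold change 1.26, SE 0.156, adjusted p = 4.97e-05). TNFRSF10A (-0.73 ± 0.181), BTG1 (-0.65 ± 0.186) and TIGAR (-0.71 ± 0.21) were higher in FOSL1sh10, and each lost the call without 1 or more libraries. When 1 library was dropped, the count higher in FOSL1sh3 was 2 without FOSL1sh3 replicate 1.

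**Figure D4:**
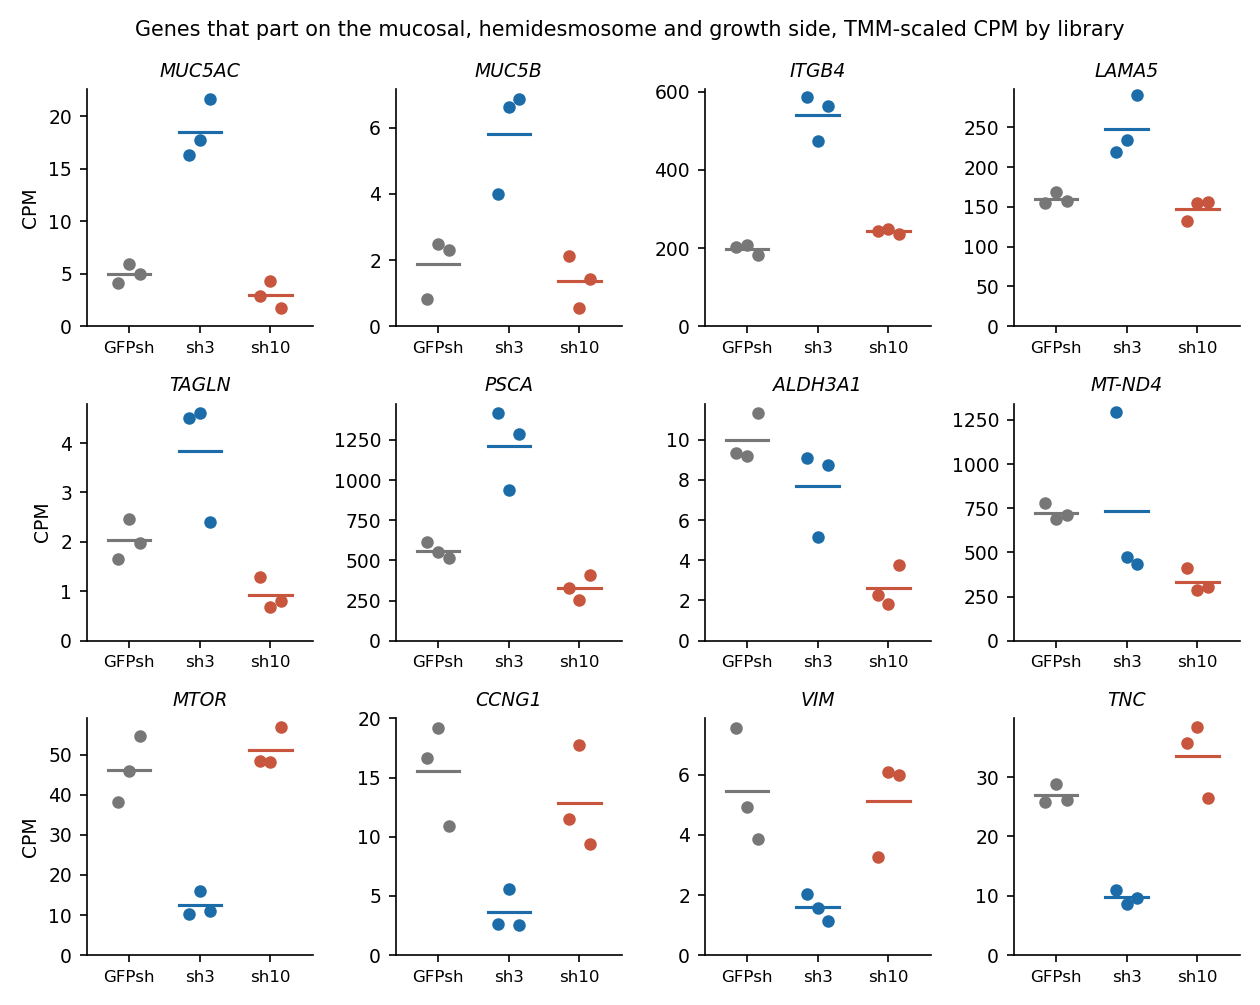
TMM-scaled CPM in each library (points) and group mean (line) for 12 genes: 8 higher in FOSL1sh3 (upper 2 rows) and MTOR, CCNG1, VIM and TNC, which were lower in FOSL1sh3. The hairpin groups do not overlap in any panel, and for MT-ND4 FOSL1sh3 replicate 1 (1293 CPM) lies far above replicates 2 and 3.

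Some genes of cholesterol and fatty acid synthesis were lower in FOSL1sh3. The cholesterol list gave 0 of 27 tested members higher in FOSL1sh3 (0%, against 5.74% of all genes) and 5 higher in FOSL1sh10 (18.5%, against 6.99%), and a median log2 fold change of -0.21. Its median estimate against GFPsh was -0.61 for FOSL1sh3 and -0.43 for FOSL1sh10. INSIG1, which holds the sterol sensor in the ER, was at 20.7, 32.5 and 21.1 CPM in FOSL1sh3 and 41, 44.3 and 42.2 CPM in FOSL1sh10, with 57.8, 64.7 and 83.8 in GFPsh. For INSIG1 the log2 fold change was -0.79 (SE 0.184, adjusted p = 0.00953). SQLE, the epoxidase of the pathway, was at 30.7, 35.7 and 28.3 CPM in FOSL1sh3 and 39.3, 55.4 and 59.3 CPM in FOSL1sh10, with 76.4, 65 and 66.3 in GFPsh. Between the hairpins SQLE differed by -0.71 (SE 0.164, adjusted p = 0.00933) on the log2 scale. In both genes all hairpin libraries were below all controls. SC5D (-0.69 ± 0.18), INSIG2 (-0.65 ± 0.188) and LBR (-1.02 ± 0.293) were called, while the entry enzyme HMGCS1 (-0.67, SE 0.265, adjusted p = 0.104) was not. Over fits lacking 1 library, the count higher in FOSL1sh10 was 1 without FOSL1sh10 replicate 2, 2 without FOSL1sh3 replicate 3 or FOSL1sh10 replicate 3 and 3 without FOSL1sh3 replicate 1 or FOSL1sh10 replicate 1. Fatty acid synthesis gave 2 of 21 tested members higher in FOSL1sh3 (9.52%, against 5.74% of all genes) and 5 higher in FOSL1sh10 (23.8%, against 6.99%), and a median log2 fold change of -0.21. With the GC trend removed 1 was higher in FOSL1sh3 and 2 in FOSL1sh10. The elongase ELOVL6 was at 30.6, 30.1 and 20.1 CPM in FOSL1sh3 and 45.2, 46 and 53.3 CPM in FOSL1sh10, with 55.7, 50.4 and 47.9 in GFPsh (log2 fold change -0.84, SE 0.166, adjusted p = 0.00311) and the acyl-CoA synthetase ACSL3 at 48.9, 59.3 and 39.2 CPM in FOSL1sh3 and 74.8, 81 and 92.8 CPM in FOSL1sh10, with 89.3, 66.6 and 70.9 in GFPsh. The difference for ACSL3 was -0.76 (SE 0.165, adjusted p = 0.00616) on the log2 scale. ELOVL7 (-0.76, SE 0.173, adjusted p = 0.00799) was higher in FOSL1sh10 too. FASN, the synthase itself, was higher in FOSL1sh3 (0.63, SE 0.172, adjusted p = 0.0238), as was the desaturase FADS1, at 14.7, 13.5 and 20.2 CPM in FOSL1sh3 and 9.53, 6.43 and 7.93 CPM in FOSL1sh10, with 18.4, 15 and 16.6 in GFPsh (log2 fold change 1.03, SE 0.216, adjusted p = 0.0047). ME1 (-0.51 ± 0.156) and HSD17B12 (-0.71 ± 0.201) were close to the threshold. With 1 library left out the count higher in FOSL1sh3 was 1 without FOSL1sh3 replicate 1 or FOSL1sh10 replicate 1 or 3, while the count higher in FOSL1sh10 was 3 without FOSL1sh3 replicate 1 or 3 or FOSL1sh10 replicate 2 or 3. SQLE, SC5D, INSIG2, LBR, FASN, ME1 and HSD17B12 lost the call without 1 or more libraries.

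Cell division genes gave few calls. Mitosis genes gave 2 of 45 tested members higher in FOSL1sh3 (4.44%, against 5.74% of all genes) and 2 higher in FOSL1sh10 (4.44%, against 6.99%), and a median log2 fold change of 0.00, and for 39 of the 45 the 95% interval lay within 1 either way. The median turned to -0.16 with library totals alone, which called 8 higher in FOSL1sh10, and with the GC trend removed 4 were higher in FOSL1sh3 and 0 in FOSL1sh10. Leaving out 1 library, the count higher in FOSL1sh3 was 1 without FOSL1sh3 replicate 1 or FOSL1sh10 replicate 2, while the count higher in FOSL1sh10 was 0 without FOSL1sh3 replicate 1 or 3 or FOSL1sh10 replicate 2 or 3, 1 without GFPsh replicate 1 or FOSL1sh10 replicate 1 and 5 without FOSL1sh3 replicate 2. The median estimate against GFPsh was -0.41 for FOSL1sh3 and -0.46 for FOSL1sh10. MKI67, the proliferation marker, differed by 0.01 ± 0.129, CDK1 by -0.19 ± 0.17 and AURKA by -0.28 ± 0.126. NCAPD2, a condensin subunit, was at 176, 181 and 223 CPM in FOSL1sh3 and 125, 132 and 112 CPM in FOSL1sh10, with 184, 189 and 199 in GFPsh. Between the hairpins NCAPD2 differed by 0.66 (SE 0.137, adjusted p = 0.00452) on the log2 scale. TOP2A, which untangles chromosomes, was below the controls with both hairpins and lower in FOSL1sh10, at 62.1, 51.5 and 43.9 CPM in FOSL1sh3 and 34.7, 32.3 and 34.9 CPM in FOSL1sh10, with 74.2, 69.9 and 62.3 in GFPsh. The difference for TOP2A was 0.63 (SE 0.15, adjusted p = 0.0105) on the log2 scale. KIF23 (-0.47 ± 0.147) and CCNA2 (-0.69 ± 0.206) were higher in FOSL1sh10. DNA replication genes gave 3 of 43 tested members higher in FOSL1sh3 (6.98%, against 5.74% of all genes) and 0 higher in FOSL1sh10 (0%, against 6.99%), and a median log2 fold change of 0.04, and 40 of the 43 had an interval within 1 either way. That median turned to -0.13 with library totals alone, which called 0 higher in FOSL1sh3 and 4 higher in FOSL1sh10. MCM4 (0.53, SE 0.141, adjusted p = 0.0199), POLD2 (0.54 ± 0.165) and RPA3 (0.93 ± 0.301) were called. In leave-one-out fits the count higher in FOSL1sh3 was 0 without FOSL1sh10 replicate 2 and 1 without GFPsh replicate 1, FOSL1sh3 replicate 1 or FOSL1sh10 replicate 3, while the count higher in FOSL1sh10 was 2 without FOSL1sh3 replicate 1 or 2 (replication genes). TOP2A, KIF23, CCNA2 and these 3 lost the call without 1 or more libraries.

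Glycolysis and hypoxia genes gave 3 of 35 tested members higher in FOSL1sh3 (8.57%, against 5.74% of all genes) and 5 higher in FOSL1sh10 (14.3%, against 6.99%), and a median log2 fold change of -0.16. The phosphofructokinase PFKL was at 64.4, 51.2 and 57.4 CPM in FOSL1sh3 and 31.4, 33.2 and 39.1 CPM in FOSL1sh10, with 36.3, 36 and 33.3 in GFPsh (log2 fold change 0.74, SE 0.146, adjusted p = 0.00311), and ALDOC, an aldolase, at 1.95, 3.31 and 2.03 CPM in FOSL1sh3 and 5.69, 5.75 and 6.1 CPM in FOSL1sh10, with 3.3, 4.04 and 3.63 in GFPsh. For ALDOC the log2 fold change was -1.29 (SE 0.296, adjusted p = 0.00874). LDHA (-0.74 ± 0.222), ENO2 (-1.41 ± 0.407), EGLN1 (-0.74 ± 0.183) and P4HA2 (-0.65 ± 0.186) were higher in FOSL1sh10, and PFKM (0.62 ± 0.165) and the glucose transporter SLC2A3 (1.25 ± 0.331) in FOSL1sh3. LDHA was at 897, 875 and 455 CPM in FOSL1sh3, where replicate 3 is low. Those 6 lost the call without 1 or more libraries. When 1 library was dropped, the count higher in FOSL1sh3 was 1 without FOSL1sh10 replicate 2, while the count higher in FOSL1sh10 was 1 without FOSL1sh10 replicate 2, 2 without FOSL1sh3 replicate 1 and 3 without FOSL1sh3 replicate 3 or FOSL1sh10 replicate 1 or 3.

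NRF2 targets and aldehyde dehydrogenases gave 3 of 30 tested members higher in FOSL1sh3 (10%, against 5.74% of all genes) and 4 higher in FOSL1sh10 (13.3%, against 6.99%), and a median log2 fold change of -0.10. ALDH3B1 was higher in FOSL1sh3 at 71.6, 67.8 and 74.9 CPM in FOSL1sh3 and 25.6, 27.1 and 33.1 CPM in FOSL1sh10, with 29.3, 35.3 and 36 in GFPsh (log2 fold change 1.32, SE 0.149, adjusted p = 1.9e-05), and ALDH3A1 at 9.11, 5.18 and 8.76 CPM in FOSL1sh3 and 2.28, 1.81 and 3.76 CPM in FOSL1sh10, with 9.36, 9.21 and 11.3 in GFPsh (log2 fold change 1.54, SE 0.305, adjusted p = 0.00312). FOSL1sh3 was above the controls for ALDH3B1 and below them for ALDH3A1. GCLM, which makes glutathione, was lower in FOSL1sh3 at 71.4, 94.7 and 72.7 CPM in FOSL1sh3 and 134, 164 and 130 CPM in FOSL1sh10, with 139, 128 and 133 in GFPsh. The difference for GCLM was -0.84 (SE 0.148, adjusted p = 0.00132) on the log2 scale. HMOX1 (-0.67 ± 0.168), AKR1B10 (-1.12 ± 0.313) and ALDH2 (-0.69 ± 0.224) were higher in FOSL1sh10 and ALDH3A2 (0.71 ± 0.175) in FOSL1sh3. These 4 lost the call without 1 or more libraries. Over fits lacking 1 library, the count higher in FOSL1sh10 was 1 without FOSL1sh10 replicate 1 or 3, 2 without FOSL1sh3 replicate 1 and 7 without FOSL1sh3 replicate 2.

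Ribosomal protein genes leaned to FOSL1sh3, with 23 of 79 tested members higher in FOSL1sh3 (29.1%, against 5.74% of all genes) and 0 higher in FOSL1sh10 (0%, against 6.99%), and a median log2 fold change of 0.42. Of the 79, 76 had a positive difference. With library totals alone 11 were called, all higher in FOSL1sh3, and the median was 0.26. RPL27A was at 6299, 5159 and 5957 CPM in FOSL1sh3 and 3945, 3041 and 3309 CPM in FOSL1sh10, with 4111, 4206 and 5644 in GFPsh. For RPL27A the log2 fold change was 0.76 (SE 0.161, adjusted p = 0.00503). RPS27 was at 2270, 2090 and 1702 CPM in FOSL1sh3 and 1309, 835 and 1315 CPM in FOSL1sh10, with 1873, 1947 and 1948 in GFPsh (log2 fold change 0.81, SE 0.171, adjusted p = 0.00487), and RPS28 at 4657, 5975 and 4641 CPM in FOSL1sh3 and 3418, 2414 and 3205 CPM in FOSL1sh10, with 4258, 5543 and 4801 in GFPsh. Between the hairpins RPS28 differed by 0.76 (SE 0.166, adjusted p = 0.00629) on the log2 scale. In these 3 genes all FOSL1sh3 libraries were above all FOSL1sh10 libraries and FOSL1sh10 was below the controls. The largest fold, of RPL7 (2.35, SE 0.616, adjusted p = 0.0184), rests on libraries that overlap, at 670, 150 and 71.7 CPM in FOSL1sh3 and 83, 38.2 and 54.4 CPM in FOSL1sh10. FOSL1sh10 replicates 2 and 3 were low in this class, with 21.1% and 21.8% of counts against 24.8% in replicate 1. With 1 library left out the count higher in FOSL1sh3 was 5 without FOSL1sh10 replicate 2, 6 without FOSL1sh10 replicate 3 and 13 without FOSL1sh3 replicate 1. Ribosomal protein genes have near-identical processed copies, and how the counting treated reads shared with them is a limit on each value.

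Few respiratory chain genes were called. The nuclear genes gave 3 of 70 tested members higher in FOSL1sh3 (4.29%, against 5.74% of all genes) and 0 higher in FOSL1sh10 (0%, against 6.99%), and a median log2 fold change of 0.22, and 56 of the 70 were positive. With library totals alone the median was 0.05, with 1 member higher in FOSL1sh3 and 2 in FOSL1sh10, and with the GC trend removed 11 were higher in FOSL1sh3. COX7C was at 867, 918 and 763 CPM in FOSL1sh3 and 668, 471 and 576 CPM in FOSL1sh10, with 707, 838 and 821 in GFPsh (log2 fold change 0.57, SE 0.15, adjusted p = 0.0189). COX6C (0.93, SE 0.229, adjusted p = 0.0129) and UQCRC1 (0.52, SE 0.143, adjusted p = 0.0231) were the others called. Leaving out 1 library, the count higher in FOSL1sh3 was 0 without FOSL1sh10 replicate 2, 1 without FOSL1sh3 replicate 1, 6 without FOSL1sh3 replicate 3 or FOSL1sh10 replicate 1 and 7 without FOSL1sh3 replicate 2, while the count higher in FOSL1sh10 was 2 without FOSL1sh3 replicate 1. Mitochondrially encoded genes gave 3 of 13 tested members higher in FOSL1sh3 (23.1%, against 5.74% of all genes) and 0 higher in FOSL1sh10 (0%, against 6.99%), and a median log2 fold change of 0.30. MT-ND2 was at 107, 86.8 and 133 CPM in FOSL1sh3 and 77.4, 61.1 and 59.3 CPM in FOSL1sh10, with 129, 145 and 127 in GFPsh. For MT-ND2 the log2 fold change was 0.73 (SE 0.163, adjusted p = 0.00701). MT-ND4 (1.13, SE 0.289, adjusted p = 0.0157) and MT-CYB (1.10, SE 0.27, adjusted p = 0.0125) were highest in FOSL1sh3 replicate 1, without which neither was called. The list's share of all counts was 1.85% ± 0.326 for FOSL1sh3 and 1.66% ± 0.118 for FOSL1sh10 (mean ± SD, 3 libraries each; exact two-sided permutation test, p = 0.4). In leave-one-out fits the count higher in FOSL1sh3 was 1 without FOSL1sh3 replicate 1 or FOSL1sh10 replicate 2 or 3.

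Genes for the machinery that a hairpin passes through were compared as well. Small RNA processing genes gave 1 of 22 tested members higher in FOSL1sh3 (4.55%, against 5.74% of all genes) and 3 higher in FOSL1sh10 (13.6%, against 6.99%), and a median log2 fold change of -0.13, with an interval within 1 either way for 18 of 22. DICER1, which cuts hairpins into guides, was at 14.2, 16.4 and 12.2 CPM in FOSL1sh3 and 20.6, 23.1 and 22.5 CPM in FOSL1sh10, with 20.6, 17.6 and 23.4 in GFPsh. Between the hairpins DICER1 differed by -0.63 (SE 0.18, adjusted p = 0.0276) on the log2 scale. PRKRA, a partner of DICER1, was at 41.1, 53 and 36.1 CPM in FOSL1sh3 and 66.9, 75.1 and 66.7 CPM in FOSL1sh10, with 74.2, 65.4 and 68.9 in GFPsh. The difference for PRKRA was -0.68 (SE 0.151, adjusted p = 0.00635) on the log2 scale. AGO4 (0.96 ± 0.309) and the decapping factor DCP1A (-0.53 ± 0.146) were called near the threshold. The calls of DICER1, AGO4 and DCP1A were lost without 1 or more libraries. When 1 library was dropped, the count higher in FOSL1sh10 was 1 without FOSL1sh10 replicate 2 or 3. Histone genes gave 1 of 17 tested members higher in FOSL1sh3 (5.88%, against 5.74% of all genes) and 1 higher in FOSL1sh10 (5.88%, against 6.99%), and a median log2 fold change of 0.07, and the median turned to -0.10 with library totals alone. The linker histone H1-2 was at 461, 408 and 501 CPM in FOSL1sh3 and 285, 251 and 270 CPM in FOSL1sh10, with 364, 363 and 414 in GFPsh (log2 fold change 0.77, SE 0.135, adjusted p = 0.0014), and MACROH2A1 (-0.42 ± 0.133) was near the threshold. Long RNAs gave 2 of 10 tested members higher in FOSL1sh3 (20%, against 5.74% of all genes) and 0 higher in FOSL1sh10 (0%, against 6.99%), and a median log2 fold change of 0.35. GAS5, which hosts small nucleolar RNAs, was at 897, 752 and 605 CPM in FOSL1sh3 and 498, 404 and 424 CPM in FOSL1sh10, with 553, 426 and 537 in GFPsh (log2 fold change 0.77, SE 0.161, adjusted p = 0.00486), and NORAD, a cytoplasmic long RNA of genome stability, at 42, 41.6 and 47.3 CPM in FOSL1sh3 and 19.5, 30.5 and 27 CPM in FOSL1sh10, with 29.2, 27.1 and 23 in GFPsh (log2 fold change 0.76, SE 0.172, adjusted p = 0.00766).

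**Figure D5:**
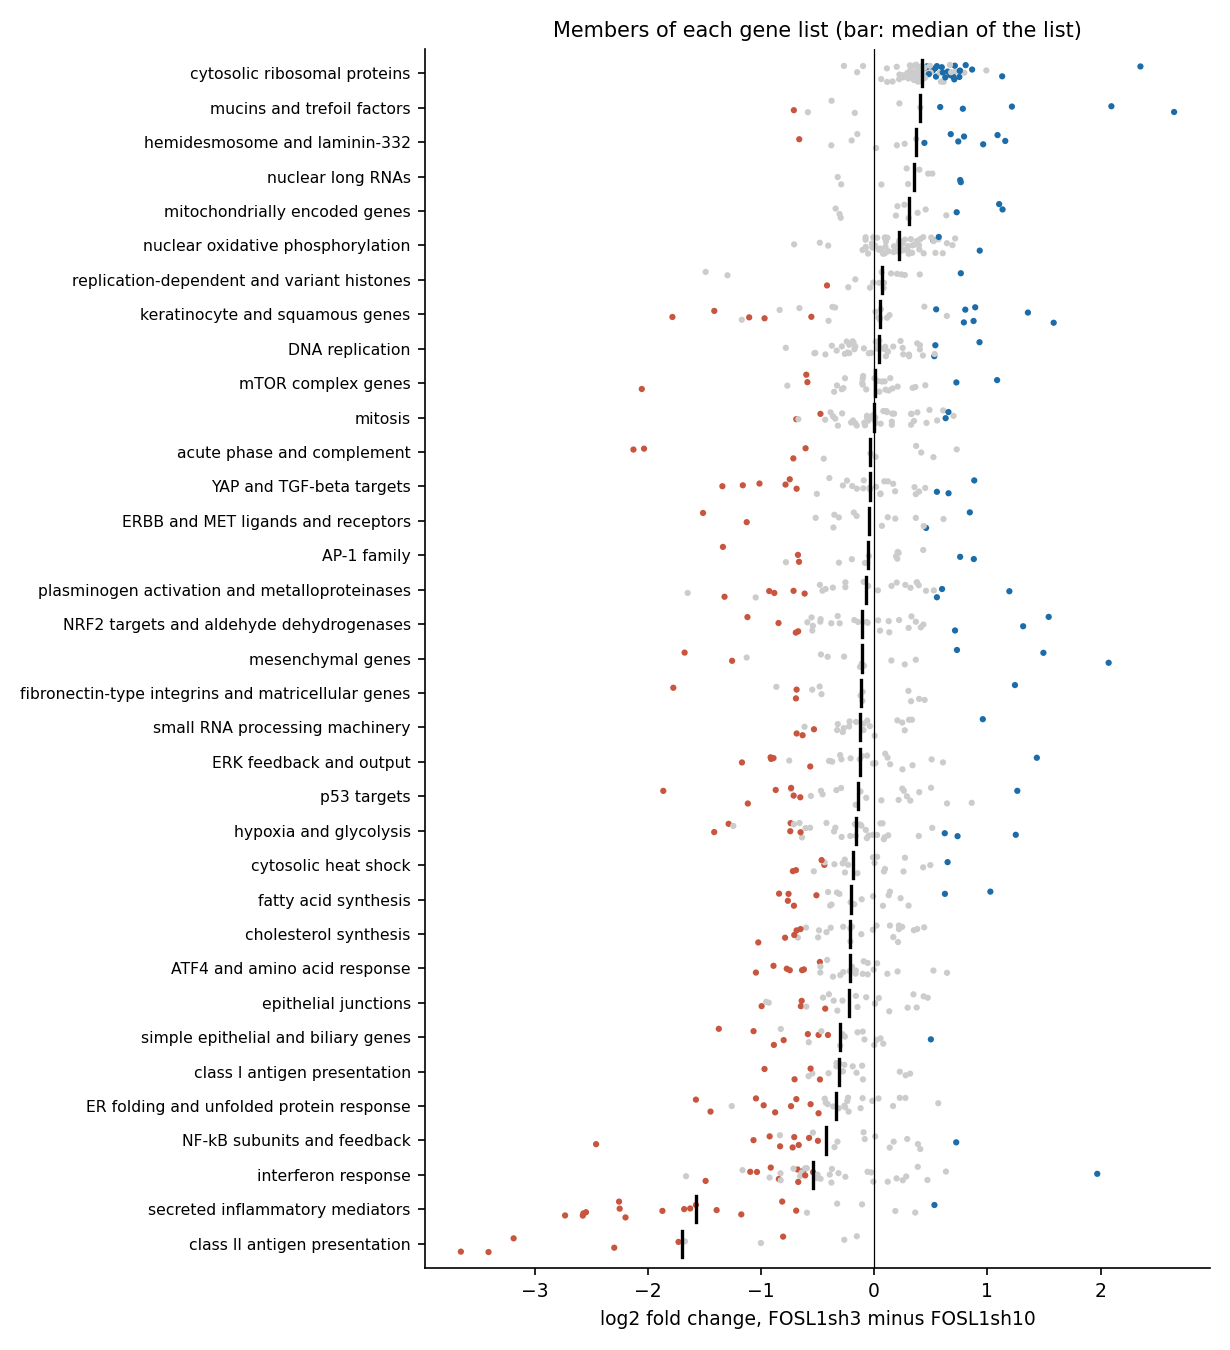
Log2 fold change (FOSL1sh3 minus FOSL1sh10, horizontal axis) of every tested member (points) of the 35 lists with 10 or more tested members (rows), with the list median as a bar. Coloured points are called, blue when higher in FOSL1sh3 and red when higher in FOSL1sh10, and class II and secreted mediators lie lowest (-1.70 and -1.57) with ribosomal proteins and mucins highest (0.42 and 0.41).

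Over all 38 lists 232 of 902 tested members were called (25.7%, against 12.7% of all genes), and the lists were written with earlier results of these data known. The 15 genes with the largest difference in each direction, among called genes with at least 30 counts on average and no overlap between the hairpins, are given here where they were not described above. On the FOSL1sh3 side ANXA11, a calcium-dependent membrane-binding annexin, was at 312, 279 and 291 CPM in FOSL1sh3 and 78.5, 77.4 and 84 CPM in FOSL1sh10, with 236, 174 and 239 in GFPsh. Between the hairpins ANXA11 differed by 1.88 (SE 0.147, adjusted p = 6.34e-07) on the log2 scale. FOSL1sh10 was below the controls in that gene. PARP16, an ADP-ribosyltransferase anchored in the ER membrane, was at 8.7, 7.34 and 6.85 CPM in FOSL1sh3 and 1.28, 0.677 and 1.22 CPM in FOSL1sh10, with 3.85, 3.7 and 3.41 in GFPsh. The difference for PARP16 was 2.85 (SE 0.323, adjusted p = 1.97e-05) on the log2 scale. GATA2, a transcription factor, was at 13, 26.9 and 31.9 CPM in FOSL1sh3 and 5.55, 4.4 and 8.64 CPM in FOSL1sh10, with 10.2, 12.7 and 12.1 in GFPsh. For GATA2 the log2 fold change was 1.93 (SE 0.297, adjusted p = 0.000456). PDE9A, which breaks down cyclic GMP, was at 41.4, 40.9 and 52.3 CPM in FOSL1sh3 and 10.7, 12.5 and 12.3 CPM in FOSL1sh10, with 27, 26.8 and 22.8 in GFPsh (log2 fold change 1.92, SE 0.17, adjusted p = 1.98e-06). DLK2, a relative of Notch ligands, was at 14.1, 20.6 and 21.6 CPM in FOSL1sh3 and 4.55, 4.06 and 3.96 CPM in FOSL1sh10, with 6.19, 7.18 and 6.71 in GFPsh (log2 fold change 2.16, SE 0.228, adjusted p = 1.03e-05), and HSD11B2, which inactivates cortisol, at 12.7, 12.1 and 10.8 CPM in FOSL1sh3 and 2.56, 1.58 and 4.27 CPM in FOSL1sh10, with 3.99, 5.28 and 5.61 in GFPsh. The difference for HSD11B2 was 2.06 (SE 0.298, adjusted p = 0.000264) on the log2 scale. For ANXA11, PARP16, GATA2, PDE9A and DLK2 the hairpins lay on opposite sides of all control libraries. ALPG, a placental-type alkaline phosphatase with near-identical copies, was also on opposite sides (2.37, SE 0.243, adjusted p = 7.67e-06). ERFE, a hormone that lowers hepcidin, followed at 9.52, 4.17 and 6.09 CPM in FOSL1sh3 and 1.14, 1.92 and 2.64 CPM in FOSL1sh10, with 2.48, 2.58 and 2.64 in GFPsh. For ERFE the log2 fold change was 1.77 (SE 0.358, adjusted p = 0.00362). TOP2B (2.08, SE 0.48, adjusted p = 0.00885) and HSD17B11 (1.96, SE 0.521, adjusted p = 0.02) varied within groups, with TOP2B at 28.4, 7.77 and 13.7 CPM in FOSL1sh3, and their calls were lost without FOSL1sh3 replicate 1 and without FOSL1sh3 replicate 1 or FOSL1sh10 replicate 2 or 3, in that order.

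On the FOSL1sh10 side PTX3, a secreted pattern recognition protein and a member of the mediator list, was at 2.87, 3.31 and 2.03 CPM in FOSL1sh3 and 12, 17.7 and 18.9 CPM in FOSL1sh10, with 1.38, 1.68 and 3.3 in GFPsh. Between the hairpins PTX3 differed by -2.57 (SE 0.304, adjusted p = 3.07e-05) on the log2 scale. PTX3 lies within VEPH1 on the opposite strand. GFPT2, which feeds glucose into hexosamine synthesis, was at 2.97, 1.87 and 1.65 CPM in FOSL1sh3 and 12.2, 18.3 and 14.2 CPM in FOSL1sh10, with 4.95, 5.39 and 3.3 in GFPsh (log2 fold change -2.75, SE 0.291, adjusted p = 1.03e-05). SLC43A3, a nucleobase transporter, was at 5.12, 4.17 and 2.67 CPM in FOSL1sh3 and 20.9, 26.7 and 21.4 CPM in FOSL1sh10, with 6.88, 3.7 and 4.07 in GFPsh. For SLC43A3 the log2 fold change was -2.51 (SE 0.266, adjusted p = 1.03e-05). SCML1, a Polycomb-related gene on chromosome X, was at 3.99, 6.33 and 2.03 CPM in FOSL1sh3 and 19.6, 18.7 and 17.8 CPM in FOSL1sh10, with 15.4, 9.43 and 14.6 in GFPsh. Between the hairpins SCML1 differed by -2.20 (SE 0.292, adjusted p = 0.000124) on the log2 scale. NEURL3, a ubiquitin ligase, was at 1.54, 1.58 and 1.65 CPM in FOSL1sh3 and 9.96, 8.8 and 5.39 CPM in FOSL1sh10, with 1.24, 0.786 and 0.99 in GFPsh. The difference for NEURL3 was -2.32 (SE 0.332, adjusted p = 0.000239) on the log2 scale. The hair keratin-associated gene KRTAP2-3 (-2.33, SE 0.195, adjusted p = 9.94e-07), which has near-identical copies, and the long RNA LINC02551 (-2.06, SE 0.27, adjusted p = 0.000114) completed the 15 with IL6, CXCL8, CXCL1, CXCL3, HLA-DRB1, CD74, SAA2 and MTOR. For GFPT2, SCML1, KRTAP2-3 and LINC02551 FOSL1sh3 was below and FOSL1sh10 above every control library, while for SLC43A3 and PTX3 FOSL1sh3 overlapped the controls.

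The control level shows which hairpin moved away from it, as a description without a test against GFPsh. Of the genes called higher in FOSL1sh10, the GFPsh mean lay between the hairpin means and nearer FOSL1sh3 for 224, between and nearer FOSL1sh10 for 410, beyond FOSL1sh3 for 103 and beyond FOSL1sh10 for 159. Of the genes called higher in FOSL1sh3, it lay between and nearer FOSL1sh3 for 243, between and nearer FOSL1sh10 for 299, beyond FOSL1sh3 for 75 and beyond FOSL1sh10 for 119. All FOSL1sh10 libraries but not all FOSL1sh3 libraries were outside the control range on 1 side for 494 of the 1632 called genes, and the reverse held for 666. None of the counts in this paragraph up to here was set beside a share over all genes tested. They are therefore not read as particular to called genes or as showing which hairpin moved. All of them use the same 3 control libraries. Reads of overlapping genes cannot be told apart without strand, which also applies to IRF1 with IRF1-AS1, CD151 with POLR2L, LAMA5 with ADRM1, CCNA2 with EXOSC9, NCAPD2 with MRPL51, DLK2 with ABCC10 and SLC6A9 with CCDC24. By type, 13.6% of 11167 protein-coding genes and 8.38% of 811 long intergenic or antisense RNAs were called.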

How the data were processed

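Expression was measured by low-input MARS-seq in 9 libraries, and the authors deposited raw counts per gene, 1 table per library. Per the file headers the counts came from featureCounts 1.6.0 over GENCODE 28 exons, run without a strand setting and without options on multiply mapped or duplicate reads. Per the submitters' processing notes FastQC 0.11.5 and STAR 2.5.3a were run on hg38. The sources used here do not say whether molecular tags were collapsed. No 2 libraries were identical.

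Genes were kept with edgeR's expression filter (minimum count 10, total 15), scaled by TMM on the full library totals and tested with edgeR 4.0.16 (R 4.3.3, quasi-likelihood test, script first tested on simulated data). All 9 libraries shared 1 estimate of spread, a biological coefficient of variation of 16.4%. The standard error is the log2 fold change divided by the root of the F statistic, and adjustment was by Benjamini and Hochberg over all genes. Alternatives used DESeq2 1.42.0, limma 3.58.1 (voom), edgeR's RLE scaling (relative log expression), library totals alone, no filter and the hairpin libraries alone. Further ones took the replicate number as a block or left out each library in turn. A trend in GC content and length was removed in an alternative added after the data were seen.

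Genes were named by rule: FOSL1, the 15 largest called differences each way with a mean of at least 30 counts and no overlap, and every called member of 38 gene lists (some are not reported here), or the 2 with the smallest p where a list had none. The comparison and the lists were chosen with earlier results of these data known. The 1081 listed genes included 902 that passed the filter. Promoter windows came from RefSeq (GRCh38.p14).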

Additional observations from a re-analysis of the deposited data

Results flagged for a closer look

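For 211 called genes every library of one hairpin was above all GFPsh libraries and every library of the other was below them, 112 higher in FOSL1sh3 and 99 higher in FOSL1sh10. They were singled out because the hairpins departed from the control in opposite directions. The difference between the hairpins was tested and the departures from GFPsh were not. Both departures use the same 3 control libraries. Genes on opposite sides of the controls were not counted over all genes tested, so the 211 have no base share beside them. PSCA, ANXA11 and KRT13 were among those higher in FOSL1sh3, and CXCL8, GFPT2, KRTAP2-3 and SERPINB2 among those higher in FOSL1sh10. CREB5, a relative of the ATF2 factors that was chosen after its values were seen, had the log2 fold change largest in size of the 211, at -3.34 (SE 0.439). It had few reads, at 0.205, 1.01 and 0.508 CPM in FOSL1sh3 and 5.98, 5.08 and 5.69 CPM in FOSL1sh10, with 2.06, 1.91 and 2.75 in GFPsh.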

How the results depend on the processing

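Against 1632 called genes, the count was 1627 with edgeR's RLE scaling, 1764 with no filter and 1316 with the hairpin libraries alone. It was 1736 with DESeq2, 1657 with limma-voom and 1509 with the GC and length trend removed. Library totals alone gave 2189, of which 17.6% were higher in FOSL1sh3 against 45.1%. Leaving out each library in turn gave 714 to 1935 called genes and 122 to 260 called list members, lowest without FOSL1sh10 replicate 2. FOSL1 ranged from -0.17 to 0.14 in the same fits, with 0.14 without FOSL1sh3 replicate 3 and 0.02 without FOSL1sh10 replicate 1, and was never called. Among uncalled markers, COL1A1 ranged from -0.59 to 0.047, positive without FOSL1sh3 replicate 1. ENG ranged from -0.21 to 0.16, with -0.21 without FOSL1sh3 replicate 3 and -0.03 without FOSL1sh10 replicate 2, and was -0.12 on library totals alone, as also (-0.12) after the GC trend was removed. The cause of these changes was not tested. No called named gene changed sign in any setting run, while 31 of 251 lost the call on library totals alone and 38 once the GC trend was removed. With the replicate number as a block 1673 genes were called, 1542 of them also without the block. After each group's mean was subtracted gene by gene, same-numbered libraries of different groups correlated at -0.12 to 0.18, so the numbers were not taken as pairs. Depth limits genes such as TNF, HLA-DRA, HLA-DPA1, CREB5 and TRAF1, where 3 counts equal 0.283 to 0.435 CPM.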
